A study of Mus musculus with 25 samples.

Results

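A melanoma that shrinks on a BRAF inhibitor can persist as a small residual tumor and later grow back as a resistant one. The contrast between those stages was taken from tumors of the mouse line YUMM1.7 in C57BL/6 mice, once with and once without an antibody against PD-L2. Of the 25 sequenced tumor biopsies, 15 enter it. In batch 2, residual tumors on the BRAF inhibitor plus anti-PD-L2 (labelled aPDL2-small, n = 2) were set against resistant tumors on the inhibitor alone (n = 3). In batch 1, residual tumors on the inhibitor alone, whose growth the labels call cytostatic (n = 5), were set against resistant tumors on the inhibitor alone (n = 5). All 15 tumors thus received a BRAF inhibitor, which the sources used here do not name, and the 2 anti-PD-L2 residual tumors alone also received the antibody. The batch 2 resistant tumors had no antibody, so the batch 2 contrast changes stage and antibody together. YUMM1.7 is 1 line with mutant Braf, and nothing in the labels says whether tumors of a group grew in separate mice, so the p-values measure the spread between these biopsies, which may be partly technical.

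The quantity reported is a difference of differences. For each gene the residual-minus-resistant change of batch 2 (the batch 2 contrast) was taken, and the residual-minus-resistant change of batch 1 (the batch 1 contrast) was subtracted from it. Levels are FPKM, fragment counts divided by transcript length and scaled to library size, and all changes are on the log2(FPKM + 1) scale, which understates the change of genes with low values. A positive value means that the residual tumor stood higher against its resistant counterpart in batch 2 than in batch 1. Genes with a mean of at least 1 FPKM over the 15 libraries were tested, which left 12196 of 23940. A gene was called when its adjusted p, from limma with Benjamini-Hochberg adjustment over all 12196 genes, was below 0.05, and values after ± are SE. Where single libraries are listed, aPDL2-small stands for the anti-PD-L2 residual tumors, Prog-b2 for the batch 2 resistant tumors, and Res and Prog for the batch 1 residual and resistant tumors, each followed by its replicate number. A constant shift between batches cancels in this quantity where residual and resistant tumors share it. In a direct comparison of the anti-PD-L2 residual tumors with the batch 1 residual tumors, antibody and batch cannot be told apart.

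Mutant BRAF keeps the MEK and ERK kinases active, which drives cyclin D1 and division and induces the pathway's own brakes, the DUSP phosphatases and Sprouty and Spred proteins. Inhibitor treatment silences this output, and resistant melanomas commonly regain it. Residual tumors hold few melanoma cells among vessels, macrophages, fibroblasts and other host cells. PD-L2, the product of Pdcd1lg2, is a ligand of the inhibitory T cell receptor PD-1 and is carried mainly by macrophages and dendritic cells. In bulk tissue, fewer cells of a type and less RNA per cell cannot be told apart.

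Between 11081 and 12262 genes per library reached 1 FPKM, at unknown read depth. The first principal component of the 15 libraries held 54.9% of the variance and ran from residual to resistant tumors. The anti-PD-L2 residual tumors lay at -29 and -13.4 on it and the batch 2 resistant tumors at 38.1, 3.94 and 51.4, while batch 1 residual tumors lay between -79.3 and -30.6 and batch 1 resistant tumors between 47.3 and 57.6. Pigment cell genes that define melanocytes (Dct, Tyr, Tyrp1, Mlana and Pmel) were near 0 in every library. Among the lineage markers the melanoma label thus rests on Pax3 and Mitf, and in part of the libraries on Sox10. The 2 anti-PD-L2 residual tumors differed from each other. Sox10, a neural crest factor, was at 0.233 FPKM in tumor 1 and 139.6 in tumor 2, and batch 1 residual tumor 1 stood apart with 158 FPKM of the skin keratin Krt14.

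Markers of host tissue also differed between the groups, and their part in the results below was not tested except where a value is given. The 12 listed adipocyte genes summed to 990 to 1212 FPKM in the anti-PD-L2 residual tumors, against 8.7 to 78.1 in batch 2 resistant tumors, and to 40.8 to 203 in batch 1 residual tumors, against 12.3 to 27.8 in batch 1 resistant tumors. The 13 skeletal muscle genes summed to 7.3 to 77.1 FPKM in the anti-PD-L2 residual tumors and 7.1 to 231 in batch 2 resistant tumors, and to 92.4 to 1235 in batch 1 residual tumors and 4.2 to 52.1 in batch 1 resistant tumors. Adipocyte signal was thus high in both anti-PD-L2 residual tumors, and muscle signal mainly in batch 1 residual tumors. The plot of list levels by library shows these and 7 other gene lists.

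**Figure D1:**
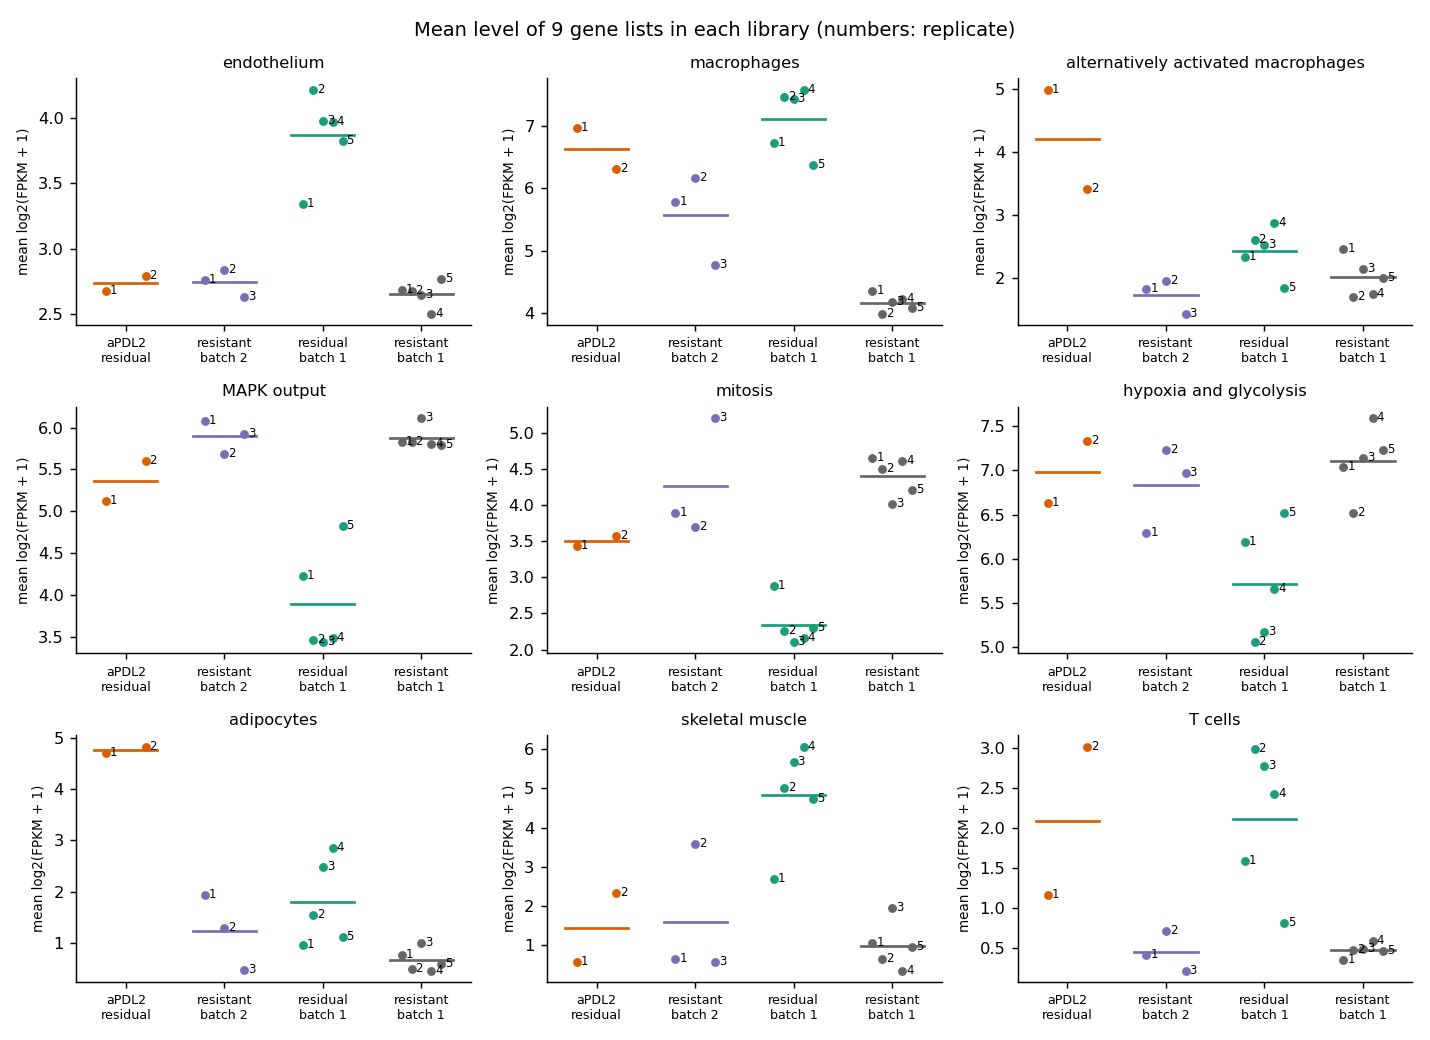
Mean level of 9 gene lists in each of the 15 libraries, as the mean of log2(FPKM + 1) over the genes of a list (vertical axis), by group (horizontal axis); each point is 1 library, its digit the replicate number and each bar a group mean. Batch 1 residual tumors stand below the anti-PD-L2 residual tumors in the mitosis list, and the adipocyte list is highest in both anti-PD-L2 residual tumors.

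Over all genes, the difference of differences was called for 1517 of 12196 genes (12.4%), with 787 higher (6.45%) and 730 lower (5.99%). The 2 contrasts differed in how many genes they called. Between anti-PD-L2 residual and batch 2 resistant tumors 547 genes passed (4.49%), 403 higher and 144 lower, and the count was 249 without Prog-b2 3, 253 without Prog-b2 1, 285 without aPDL2-small 1, and 1649 without Prog-b2 2. Between batch 1 residual and resistant tumors 8195 passed (67.2%), 3677 higher and 4518 lower. The groups hold 2 and 3 tumors in batch 2 and 5 each in batch 1, so a given change passed more easily in batch 1, and these 2 counts alone do not show a difference in size.

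The called genes mostly had a smaller change in batch 2. In 1369 of the 1517 the absolute change was smaller in the batch 2 contrast, and in 620 the estimates had opposite signs. Changes were also narrower in batch 2 over all genes (SD 0.70 against 1.06), so these counts do not set the called genes apart. Of the 787 genes with a higher value, 708 were lower in batch 1 residual than in batch 1 resistant tumors, and 688 of these were not called in the batch 2 contrast. Another 63 of the 787 were higher in anti-PD-L2 residual than in batch 2 resistant tumors. Of the 730 with a lower value, 714 were higher in batch 1 residual than resistant tumors, and 12 were lower in anti-PD-L2 residual than in batch 2 resistant tumors. Across all genes the changes of the contrasts, which share no library, had a Pearson r of 0.588 and a Spearman rho of 0.644. Genes are not independent. With single libraries left out, the count was 369 without aPDL2-small 2, 739 without Prog-b2 2, 844 without Prog 5, 847 without Res 3, 848 without Res 2, 971 without Prog 2, 994 without Prog 3, 2304 without Prog-b2 3, and 2307 without Res 5.

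**Figure D2:**
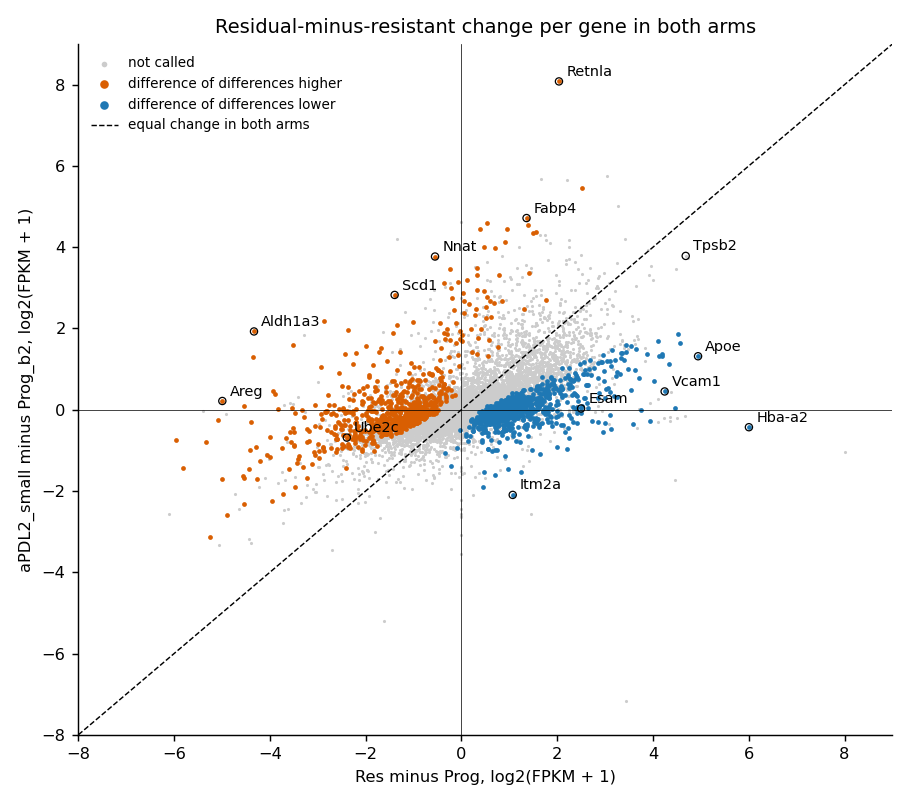
Change of each of the 12196 tested genes between anti-PD-L2 residual and batch 2 resistant tumors (vertical axis, log2 of FPKM + 1) against its change between batch 1 residual and resistant tumors (horizontal axis, same scale); coloured points are the 787 genes with a called higher and the 730 with a called lower difference of differences. Most coloured points lie near 0 on the vertical axis and away from 0 on the horizontal one.

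The difference of differences also equals the gap between the 2 residual groups minus the gap between the 2 resistant groups. The residual groups stood further apart than the resistant groups in 546 of the 787 genes called higher (69.4%) and 558 of the 730 called lower (76.4%), against 6434 of the 10679 genes not called (60.2%). Between anti-PD-L2 residual and batch 1 residual tumors 2166 genes were called (17.8%), 964 higher and 1202 lower, and the share of higher calls was 44.5%, or 55.4% with median-of-ratios size factors. Here the count was 452 without aPDL2-small 2, 1284 without aPDL2-small 1, 1405 without Res 3, and 1440 without Res 2. Between batch 2 and batch 1 resistant tumors, both without the antibody, 767 were called (6.29%), 254 higher and 513 lower, a share of 33.1% higher that was 53.6% with the size factors, and the count was 204 without Prog-b2 1, 285 without Prog 5, 319 without Prog 2, 395 without Prog 3, and 1450 without Prog-b2 3. Of genes not called between the residual groups, 156 with a higher value were called lower in batch 2 than in batch 1 resistant tumors. The reverse held for 105 with a lower value.

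Braf itself, the mutant oncogene of the line, was one of these and was picked after its values were seen. Braf stood at 5.93 and 4.69 FPKM in the anti-PD-L2 residual tumors, against 4.59, 4.33 and 5.69 in the batch 2 resistant tumors. In batch 1 Braf stood at 5.48, 5.11, 4.12, 5.97 and 7.35 in residual tumors, against 51.3, 43.5, 44.4, 31.9 and 49.7 in resistant tumors. The 5 batch 1 resistant tumors stood above all other libraries, and the other 3 groups overlapped. For Braf the difference of differences was 2.88 ± 0.26 (adjusted p = 0.000149), from changes of 0.10 in the batch 2 contrast (adjusted p = 0.799) and -2.77 in the batch 1 contrast (adjusted p = 1.97e-07). Between the resistant groups Braf changed by -2.93 (adjusted p = 1.69e-06). The call of Braf held without each of the 15 libraries in turn. Its difference of differences therefore came from the batch 1 resistant tumors and not from the residual tumors. The same holds for Prl8a9, a member of the prolactin family, and Esp15, a member of the exocrine gland-secreted peptide family. Prl8a9 was at 0 and 0.176 FPKM in the anti-PD-L2 residual tumors and at 0.0822, 3.02 and 0.527 in the batch 2 resistant tumors. Levels of Prl8a9 in batch 1 were 0.113, 0, 0.0219, 0.0258 and 0.392 FPKM in residual tumors and 27.5, 50.2, 41.4, 23.3 and 112 FPKM in resistant tumors. Esp15 measured 0.0352 and 0.112 FPKM in the anti-PD-L2 residual tumors, against 0, 0 and 4.7 in the batch 2 resistant tumors. Without antibody, Esp15 measured 0.0991, 0.0657, 0.176, 0.0576 and 0.309 FPKM in batch 1 residual tumors, against 89.9, 86.4, 103, 11.7 and 164 in batch 1 resistant tumors. In both genes every batch 1 resistant tumor stood above every other library. Both met the expression filter only through these tumors, so it partly fixed their direction. Prl8a9 had a difference of differences of 4.54 ± 0.69 (adjusted p = 0.00345) and Esp15 one of 5.22 ± 1.07 (adjusted p = 0.0115). The call of Prl8a9 held without each library in turn, and that of Esp15 ended without aPDL2-small 2 (value 5.16).

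**Figure D3:**
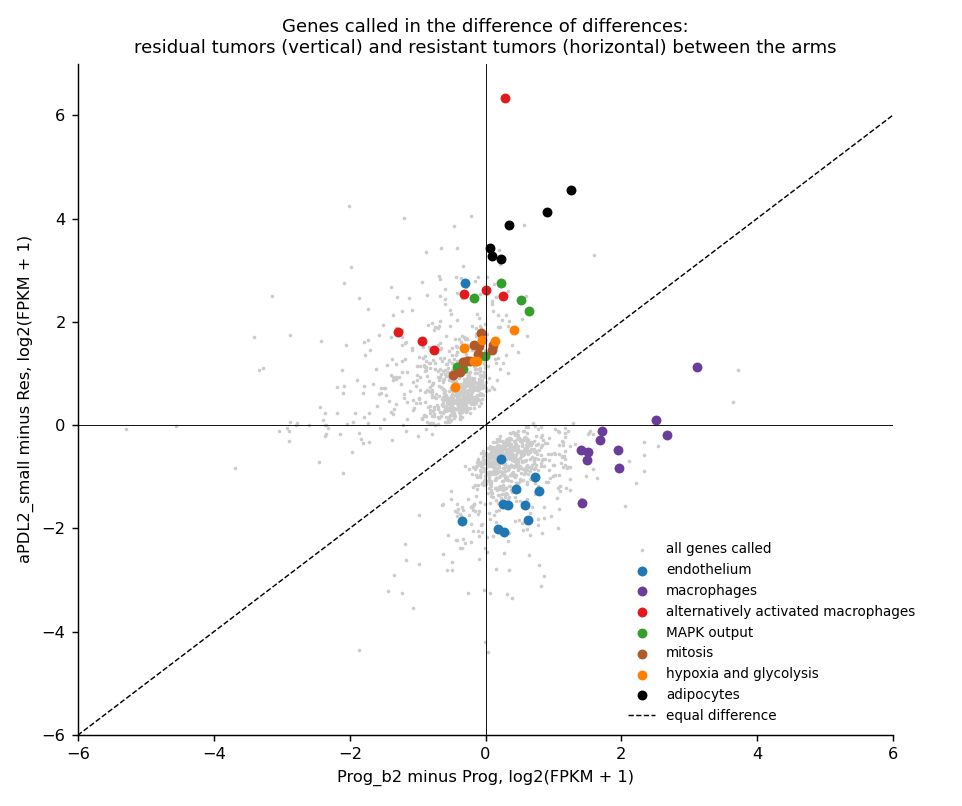
Gap between anti-PD-L2 residual and batch 1 residual tumors (vertical axis, log2 of FPKM + 1) against the gap between batch 2 and batch 1 resistant tumors (horizontal axis, same scale) for the 1517 called genes, with the called members of 7 gene lists coloured. Endothelial genes lie mostly below 0 on the vertical axis and close to 0 on the horizontal one, and macrophage genes lie mostly to the right of 0.

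Endothelial genes had a lower difference of differences as a group. Of 17 listed genes 16 were tested, and 11 had a called lower and 1 a called higher value, against 5.99% and 6.45% of all genes, the shares against which the counts of the other lists are also read. Their median was -1.71, against 0.05 over all genes tested. Within the batch 1 contrast 14 of the 16 were higher in residual tumors and 2 lower, against 67.2% of all genes called, whereas limma called 0 in the batch 2 contrast, where 2 had an unadjusted p under 0.05 and the median change was -0.03. Between the residual groups 14 of the 16 were lower and 1 higher in anti-PD-L2 residual than in batch 1 residual tumors, against 17.8% of all genes called. For the lower members, left out singly, no library moved this count by over 1.5 times (range 8 to 13).

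Esam, an adhesion protein of endothelial tight junctions, stood at 5.66 and 5.54 FPKM in the anti-PD-L2 residual tumors, against 6.92, 4.4 and 5.32 in the batch 2 resistant tumors. In batch 1 Esam stood at 15, 31.6, 28.3, 22.8 and 18.9 in residual tumors, against 3.68, 3.84, 2.6, 2.45 and 3.5 in resistant tumors. Each batch 1 residual tumor stood above all 10 other libraries, and the 2 anti-PD-L2 residual tumors lay inside the range of the batch 2 resistant tumors. For Esam the difference of differences was -2.47 ± 0.32 (adjusted p = 0.00175), from changes of 0.03 in the batch 2 contrast (adjusted p = 0.962) and 2.5 in the batch 1 contrast (adjusted p = 7.67e-07). Tie1, a receptor kinase of vessel endothelium, was at 2.62 and 2.63 FPKM in the anti-PD-L2 residual tumors and at 3.42, 2.84 and 2.94 in the batch 2 resistant tumors. Levels of Tie1 in batch 1 were 9.63, 17.9, 14, 13.8 and 13.9 FPKM in residual tumors and 2.6, 3.03, 2.49, 1.69 and 3.34 FPKM in resistant tumors. Again the batch 1 residual tumors were the highest 5 libraries. For Tie1 the difference of differences was -2.19 ± 0.27 (adjusted p = 0.00152), from changes of -0.16 in the batch 2 contrast (adjusted p = 0.681) and 2.02 in the batch 1 contrast (adjusted p = 8.46e-07). Sox18, a transcription factor of vessel development, measured 8.33 and 7.48 FPKM in the anti-PD-L2 residual tumors, against 7.12, 6.74 and 4.52 in the batch 2 resistant tumors. Without antibody, Sox18 measured 14.9, 24.5, 25.5, 22.2 and 17.3 FPKM in batch 1 residual tumors, against 2.9, 3.61, 3.19, 2.46 and 3.18 in batch 1 resistant tumors. The anti-PD-L2 residual tumors stood above the batch 2 resistant tumors by a small margin, and in batch 1 the groups were far apart. For Sox18 the difference of differences was -2.06 ± 0.27 (adjusted p = 0.00175), from changes of 0.34 in the batch 2 contrast (adjusted p = 0.379) and 2.4 in the batch 1 contrast (adjusted p = 4.29e-07). Robo4, a guidance receptor that steadies vessels, had a difference of differences of -1.88 ± 0.24 (adjusted p = 0.00175).

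Vcam1, the adhesion molecule with which inflamed vessels hold leukocytes, was outside the list but among the largest lower values. Vcam1 stood at 25.4 and 25.6 FPKM in the anti-PD-L2 residual tumors, against 17.7, 29.7 and 11.7 in the batch 2 resistant tumors. In batch 1 Vcam1 stood at 210.5, 293, 187, 228 and 124 in residual tumors, against 11.5, 6.96, 10.3, 10.6 and 9.58 in resistant tumors. The batch 1 residual tumors stood above all others, and the groups of batch 2 overlapped. For Vcam1 the difference of differences was -3.79 ± 0.42 (adjusted p = 0.000681), from changes of 0.45 in the batch 2 contrast (adjusted p = 0.453) and 4.24 in the batch 1 contrast (adjusted p = 2.79e-07). The calls of Esam, Tie1, Sox18, Robo4 and Vcam1 held without each of the 15 libraries in turn.

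Not every endothelial gene followed this pattern. Flt1, which encodes the VEGF receptor VEGFR1 and was picked after its values were seen, ran the other way. Flt1 was at 29.5 and 57.5 FPKM in the anti-PD-L2 residual tumors and at 26.5, 31.4 and 24.2 in the batch 2 resistant tumors. Levels of Flt1 in batch 1 were 4.06, 4.7, 4.02, 5.08 and 9.72 FPKM in residual tumors and 33.4, 21.2, 39.7, 45.4 and 35 FPKM in resistant tumors. All batch 1 residual tumors stood below all other libraries. For Flt1 the difference of differences was 3.07 ± 0.43 (adjusted p = 0.00224), from changes of 0.58 in the batch 2 contrast (adjusted p = 0.347) and -2.49 in the batch 1 contrast (adjusted p = 4.47e-06). The call of Flt1 held without each of the 15 libraries in turn. Cdh5, which encodes VE-cadherin and was also picked after its values were seen, measured 9.13 and 5.83 FPKM in the anti-PD-L2 residual tumors, against 11.9, 49.4 and 21 in the batch 2 resistant tumors. Without antibody, Cdh5 measured 13, 29.7, 24.6, 25.7 and 23.4 FPKM in batch 1 residual tumors, against 88, 118, 109, 96.4 and 76.7 in batch 1 resistant tumors. It was highest in the batch 1 resistant tumors, without overlap, and lower in the residual tumors of batch 1. For Cdh5 the difference of differences was 0.51 ± 0.54 (adjusted p = 0.543), from changes of -1.55 in the batch 2 contrast (adjusted p = 0.0635) and -2.05 in the batch 1 contrast (adjusted p = 7.25e-05). With single libraries left out the value for Cdh5 was 0.05 without Prog-b2 1 and 1.03 without Prog-b2 2, and it passed at 2.05 with the anti-PD-L2 resistant tumors in place of the batch 2 resistant tumors (adjusted p = 0.011). Pecam1, the platelet endothelial adhesion molecule CD31, had a value of -1.1 ± 0.37 that did not pass (adjusted p = 0.065). Summed over the 17 listed genes, which Flt1 and Cdh5 raise in resistant tumors, FPKM were 202 to 228 in the anti-PD-L2 residual tumors, 187 to 273 in batch 2 resistant tumors, 315 to 482 in batch 1 residual tumors and 242 to 282 in batch 1 resistant tumors.

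**Figure D4:**
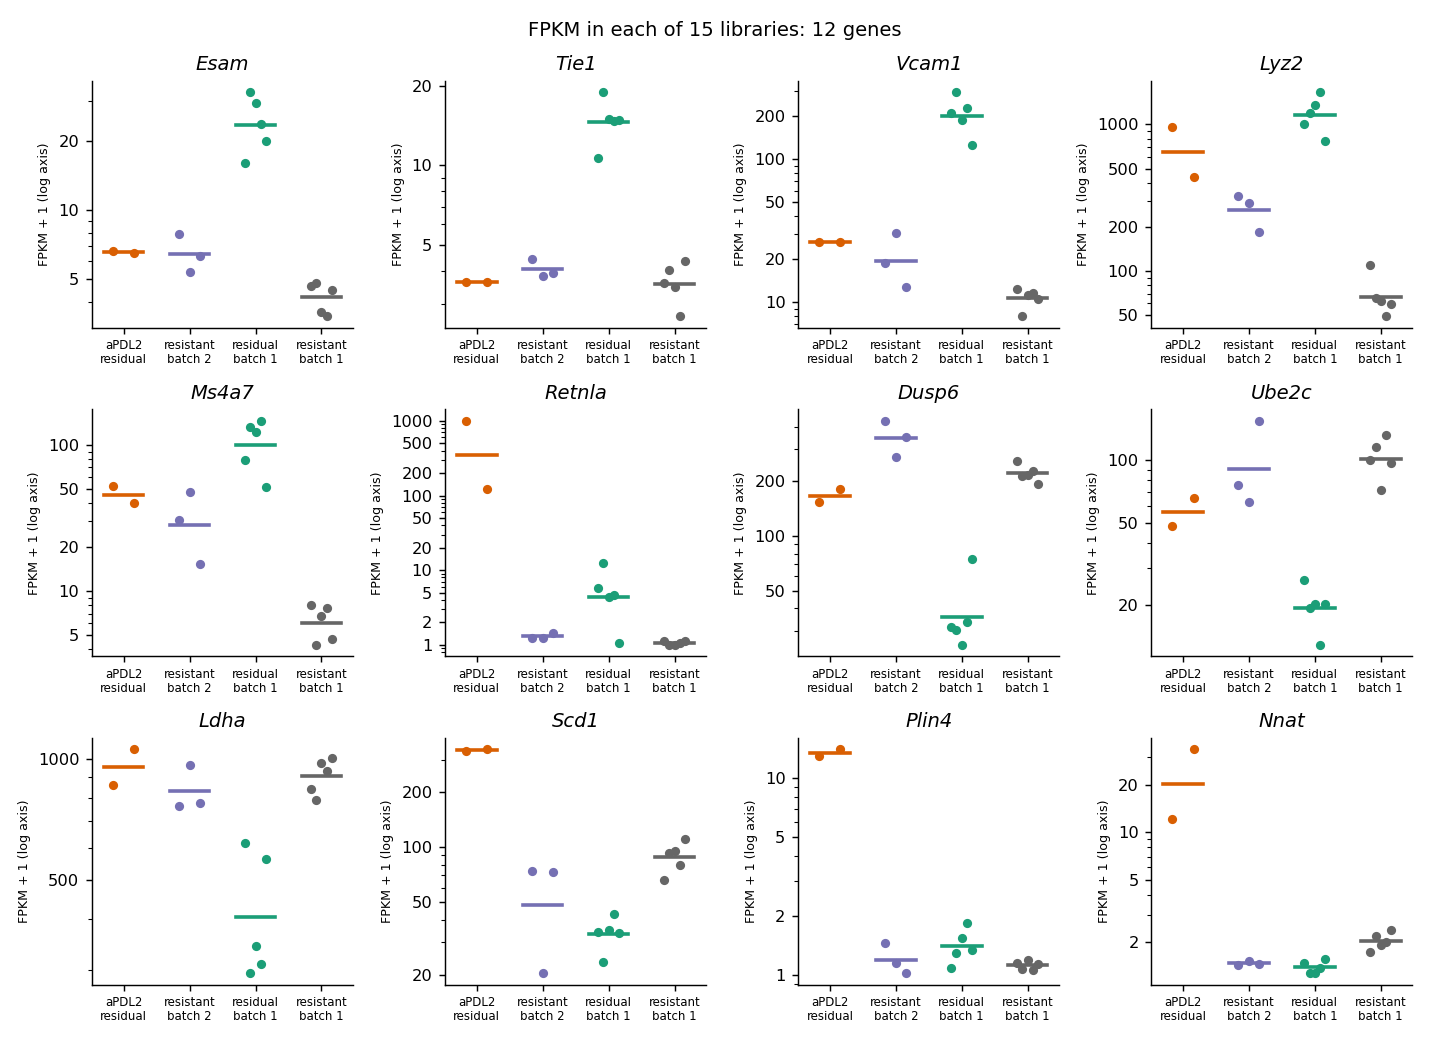
FPKM + 1 of 12 genes in each of the 15 libraries (vertical axis, log scale), by group (horizontal axis); each point is 1 tumor and each bar the mean on the log scale. Esam, Tie1 and Vcam1 are highest in the 5 batch 1 residual tumors, Retnla, Scd1, Plin4 and Nnat in the 2 anti-PD-L2 residual tumors.

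General macrophage markers had a lower difference of differences. Of 18 listed genes, all tested, 11 were called lower and 0 higher, against 5.99% and 6.45% of all genes, with a median of -1.99. In the batch 1 contrast 17 of the 18 were higher in residual tumors (median 3.26), against 3677 of all 12196 genes. In the batch 2 contrast limma called 0, although 10 were higher at an unadjusted p under 0.05 and the median was 1.23. The resistant groups differed as well. Of the 18 genes 10 were higher in batch 2 than in batch 1 resistant tumors (median 1.49), against 254 of all 12196 genes. Between the residual groups 1 was higher and 1 lower, against 17.8% of all genes called. Left out singly, 10 of the 15 libraries moved the count of 11 by over 1.5 times, so that the count was 2 without aPDL2-small 2, 3 without Prog-b2 2, 4 without Prog-b2 1, Res 2 and 3 or Prog 2 and 5, 5 without Res 4 or Prog 3, and 6 without Prog 1. With the anti-PD-L2 resistant tumors instead, 2 were called lower.

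Lyz2, the lysozyme of macrophages and neutrophils, stood at 960.4 and 436 FPKM in the anti-PD-L2 residual tumors, against 325, 288 and 184 in the batch 2 resistant tumors. In batch 1 Lyz2 stood at 1003, 1195, 1356, 1657 and 764 in residual tumors, against 109, 64.4, 61.1, 47.9 and 58 in resistant tumors. The residual tumors stood above the resistant tumors in both batches without overlap, and the batch 2 resistant tumors stood above all batch 1 resistant tumors. For Lyz2 the difference of differences was -2.8 ± 0.49 (adjusted p = 0.0059), from changes of 1.32 in the batch 2 contrast (adjusted p = 0.0783) and 4.12 in the batch 1 contrast (adjusted p = 4.29e-07). Emr1, which encodes the macrophage surface protein F4/80, was at 73.3 and 35.1 FPKM in the anti-PD-L2 residual tumors and at 18.8, 19.7 and 11.2 in the batch 2 resistant tumors. Levels of Emr1 in batch 1 were 41.4, 76.4, 62.8, 85.8 and 29.3 FPKM in residual tumors and 5.14, 2.83, 5.28, 4.78 and 3.46 FPKM in resistant tumors. Again residual tumors were higher without overlap in both batches, and by more in batch 1. For Emr1 the difference of differences was -1.83 ± 0.52 (adjusted p = 0.0391), from changes of 1.6 in the batch 2 contrast (adjusted p = 0.0514) and 3.43 in the batch 1 contrast (adjusted p = 2.19e-06). Cx3cr1, the fractalkine receptor of monocytes and resident macrophages, measured 4.43 and 11 FPKM in the anti-PD-L2 residual tumors, against 12.8, 8.28 and 7.12 in the batch 2 resistant tumors. Without antibody, Cx3cr1 measured 1.94, 3.82, 3.99, 1.92 and 2.45 FPKM in batch 1 residual tumors, against 0.12, 0.0406, 0.19, 0.426 and 0.0807 in batch 1 resistant tumors. Its highest values lay in batch 2, where residual and resistant tumors overlapped, and the resistant groups differed by 3.12 (adjusted p = 5.08e-05). For Cx3cr1 the difference of differences was -2.0 ± 0.41 (adjusted p = 0.0117), from changes of -0.33 in the batch 2 contrast (adjusted p = 0.584) and 1.68 in the batch 1 contrast (adjusted p = 4.33e-05). Ms4a7, a membrane protein of macrophages, had a value of -3.33 ± 0.59 (adjusted p = 0.00621). Apoe, the lipid carrier that macrophages secrete, had one of -3.63 ± 0.77 (adjusted p = 0.0133), with 3185 and 1853 FPKM in the anti-PD-L2 residual tumors and 1389.8, 1879 and 355 in batch 2 resistant tumors, and 4312, 10281, 11778, 9699.6 and 3807 FPKM in batch 1 residual tumors and 283, 177, 256, 282 and 191 in batch 1 resistant tumors. The calls lost when 1 library was left out were the calls of Emr1 and Apoe without aPDL2-small 2 (adjusted p = 0.0758 to 0.198), and that of Emr1 without Prog-b2 1 and 2, Res 2 to 4 or Prog 1, 2, 3 and 5 (adjusted p = 0.0504 to 0.0868). The calls of Lyz2, Cx3cr1 and Ms4a7 held without each of the 15 libraries in turn. Leaving the replicate block aside, other settings ended the calls of Lyz2, Emr1 and Cx3cr1 with the anti-PD-L2 resistant tumors in place of the batch 2 resistant tumors (adjusted p = 0.0622 to 0.264), and the call of Emr1 without the filter on low values or in a fit of all 25 libraries (adjusted p = 0.059 to 0.15).

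Most tested markers of alternatively activated macrophages, the state that interleukins of the type 2 response induce, had the opposite sign. Of 18 listed genes 17 were tested, 7 were called higher and 0 lower, and the median was 2.02. Cd209f, Cd209d and Cd209a passed the expression filter through anti-PD-L2 residual tumor 1. The count and the median are therefore no evidence about the list. In the batch 2 contrast 10 were higher in anti-PD-L2 residual tumors (median 2.78), against 4.49% of all genes called, and in the batch 1 contrast 6 were higher and 2 lower (median 0.44). For the higher members, the count was 2 without aPDL2-small 1, 3 without Prog 5, and 4 without Prog-b2 2, Res 2 and 3 or Prog 1 and 3, and 2 were called with the anti-PD-L2 resistant tumors in place of the batch 2 resistant tumors. Retnla, a secreted protein that interleukin-4 induces in macrophages, stood at 1002 and 122 FPKM in the anti-PD-L2 residual tumors, against 0.245, 0.221 and 0.439 in the batch 2 resistant tumors. In batch 1 Retnla stood at 4.84, 11.4, 3.39, 3.62 and 0.0558 in residual tumors, against 0.12, 0, 0, 0.0621 and 0.12 in resistant tumors. Both anti-PD-L2 residual tumors stood above every other library, tumor 1 far above tumor 2. For Retnla the difference of differences was 6.04 ± 1.02 (adjusted p = 0.00518), from changes of 8.08 in the batch 2 contrast (adjusted p = 0.000278) and 2.04 in the batch 1 contrast (adjusted p = 0.00701). Cd209f, a C-type lectin of the DC-SIGN family, was at 14.4 and 4.62 FPKM in the anti-PD-L2 residual tumors and at 0.602, 0.58 and 0.221 in the batch 2 resistant tumors. Levels of Cd209f in batch 1 were 0.186, 0.649, 0.60, 0.951 and 0.284 FPKM in residual tumors and 0.838, 0.113, 0.436, 0.252 and 0.771 FPKM in resistant tumors. Both anti-PD-L2 residual tumors were again the highest, and the batch 1 groups overlapped. For Cd209f the difference of differences was 2.62 ± 0.45 (adjusted p = 0.00563), from changes of 2.68 in the batch 2 contrast (adjusted p = 0.00176) and 0.05 in the batch 1 contrast (adjusted p = 0.864). Cd209d and Cd209a, close relatives of it whose reads a count could split, had values of 2.85 ± 0.67 (adjusted p = 0.0202) and 2.25 ± 0.60 (adjusted p = 0.0307).

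The called members did not share 1 pattern. Lyve1, a hyaluronan receptor of lymphatic vessels and tissue macrophages that was picked after its values were seen, measured 39.5 and 4.42 FPKM in the anti-PD-L2 residual tumors, so that tumor 2 lay inside the batch 1 residual range of 1.71 to 8.36. Its difference of differences was 3.09 ± 0.91 (adjusted p = 0.0435). Il10, the anti-inflammatory cytokine, also picked after its values were seen, was higher in resistant tumors. Il10 measured 1.64 and 10.50 FPKM in the anti-PD-L2 residual tumors, against 23.5, 15.1 and 14 in the batch 2 resistant tumors. Without antibody, Il10 measured 0.324, 0.799, 0.81, 1.13 and 1.02 FPKM in batch 1 residual tumors, against 52.6, 15.2, 65.4, 31.4 and 25 in batch 1 resistant tumors. Within both batches every resistant tumor stood above every residual tumor, by less in batch 2. For Il10 the difference of differences was 2.55 ± 0.71 (adjusted p = 0.0361), from changes of -1.71 in the batch 2 contrast (adjusted p = 0.111) and -4.27 in the batch 1 contrast (adjusted p = 3.69e-06). With 1 library left out at a time, the lost calls were the calls of Cd209a, Lyve1 and Il10 without Prog-b2 2 or Prog 5 (adjusted p = 0.0501 to 0.0755), those of Lyve1 and Il10 without Res 2 and 3 or Prog 1 and 3 (adjusted p = 0.0533 to 0.074), that of Il10 without aPDL2-small 2 (adjusted p = 0.206), and that of Lyve1 without aPDL2-small 1, Prog-b2 1 and 3, Res 1 or Prog 2 (adjusted p = 0.0507 to 0.212). The calls of Retnla, Cd209f and Cd209d held without each of the 15 libraries in turn, except that Cd209f and Cd209d fell below the expression filter without aPDL2-small 1. Cd209a fell below the expression filter without aPDL2-small 1. Sizes moved by over 1.5 times, to 3.45 without aPDL2-small 2 for Cd209a, and 1.64 without aPDL2-small 1 for Lyve1, and 1.49 without aPDL2-small 2 for Il10. Apart from the replicate block, other settings ended the calls of Cd209f, Cd209d, Cd209a, Lyve1 and Il10 with the anti-PD-L2 resistant tumors in place of the batch 2 resistant tumors (adjusted p = 0.0502 to 0.315), the calls of Lyve1 and Il10 without the filter on low values or with library weights (adjusted p = 0.0567 to 0.0698), and the call of Cd209a with a pseudocount of 0.1 (adjusted p = 0.118).

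Genes of ERK pathway output had a higher difference of differences. Of 21 listed genes 20 were tested, 7 were called higher and 0 lower, against 6.45% and 5.99% of all genes, and all 20 estimates were above 0 (median 1.54). In the batch 1 contrast 18 of the 20 were lower in residual tumors (median -2.19), and in the batch 2 contrast limma called 0, with 2 lower at an unadjusted p under 0.05 (median -0.58). The anti-PD-L2 residual tumors stood above the batch 1 residual tumors in 13 of the 20, against 17.8% of all genes called, and the resistant groups differed in 1. For the higher members, the count was 0 without aPDL2-small 2, 3 without Prog-b2 2, Res 2 and 3 or Prog 1, 4 without aPDL2-small 1, Res 4 or Prog 2, 3 and 5, and 16 without Res 5.

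Dusp6, the phosphatase that switches ERK off, stood at 153 and 179.7 FPKM in the anti-PD-L2 residual tumors, against 430.4, 271 and 349 in the batch 2 resistant tumors. In batch 1 Dusp6 stood at 30.7, 29.4, 24.2, 32.5 and 74.2 in residual tumors, against 257, 213, 215, 227 and 194 in resistant tumors. Residual tumors were lower than resistant tumors in both batches without overlap, and the anti-PD-L2 residual tumors stood above all batch 1 residual tumors. For Dusp6 the difference of differences was 1.57 ± 0.42 (adjusted p = 0.0315), from changes of -1.05 in the batch 2 contrast (adjusted p = 0.0989) and -2.62 in the batch 1 contrast (adjusted p = 3.06e-06). Dusp5, a nuclear ERK phosphatase, was at 38.1 and 43.6 FPKM in the anti-PD-L2 residual tumors and at 110.0, 65.1 and 59 in the batch 2 resistant tumors. Levels of Dusp5 in batch 1 were 6.78, 5.24, 4.4, 4.48 and 16.4 FPKM in residual tumors and 85.7, 109.9, 117, 48.9 and 82 FPKM in resistant tumors. Residual and resistant tumors again did not overlap in either batch. For Dusp5 the difference of differences was 2.64 ± 0.56 (adjusted p = 0.014), from changes of -0.86 in the batch 2 contrast (adjusted p = 0.289) and -3.5 in the batch 1 contrast (adjusted p = 3.07e-06). Ccnd1, which encodes cyclin D1 and carries cells into division, measured 234 and 428 FPKM in the anti-PD-L2 residual tumors, against 411, 310.1 and 615 in the batch 2 resistant tumors. Without antibody, Ccnd1 measured 70.3, 35.1, 25.2, 34 and 97.8 FPKM in batch 1 residual tumors, against 356, 332, 438, 408 and 312 in batch 1 resistant tumors. The groups of batch 2 overlapped, and those of batch 1 did not. For Ccnd1 the difference of differences was 2.53 ± 0.58 (adjusted p = 0.018), from changes of -0.43 in the batch 2 contrast (adjusted p = 0.607) and -2.96 in the batch 1 contrast (adjusted p = 8.56e-06). Spred2, an inhibitor of RAF activation, had a value of 1.41 ± 0.36 (adjusted p = 0.0276), and Spry4, a Sprouty inhibitor picked after its values were seen, one of 1.91 ± 0.57 (adjusted p = 0.0448). Left out singly, libraries ended the calls of Dusp6, Dusp5, Ccnd1, Spred2 and Spry4 without aPDL2-small 2 (adjusted p = 0.0641 to 0.177), those of Dusp6, Spred2 and Spry4 without Prog-b2 2 (adjusted p = 0.0649 to 0.0972), those of Dusp6 and Spry4 without aPDL2-small 1, Res 2 and 3 or Prog 1 (adjusted p = 0.0504 to 0.0741), and that of Spry4 without Res 4 or Prog 2 to 5 (adjusted p = 0.0512 to 0.0708). Settings other than the replicate block ended the call of Spry4 without the filter on low values (adjusted p = 0.0672).

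Genes of mitosis followed the same direction. All 23 listed genes were tested, 11 were called higher and 0 lower, and all 23 estimates were above 0 (median 1.36). In the batch 1 contrast all 23 were lower in residual tumors (median -2.1), against 4518 of all 12196 genes. In the batch 2 contrast limma called 0, although 11 were lower at an unadjusted p under 0.05 (median -0.81), and between the resistant groups it called 0, with 0 under an unadjusted 0.05. Between the residual groups 13 of the 23 were higher in anti-PD-L2 residual tumors. The count depended on single libraries, since the count was 0 without aPDL2-small 2 or Prog-b2 2, 1 without Prog-b2 1, 2 without aPDL2-small 1 or Res 2 and 3, 3 without Prog 1 and 2, 4 without Res 4 or Prog 5, 5 without Prog 4, and 22 without Prog-b2 3. With the anti-PD-L2 resistant tumors instead, 21 of the 23 were called, against 14.3% of all genes in that comparison.

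Mitotic genes carry a known pair of promoter motifs, the CCAAT box that the factor NF-Y reads and the cell cycle homology region, CHR. The promoters of the 3 mitosis genes with the smallest adjusted p and an available sequence are therefore shown. They cover the 150 bases before the RefSeq transcript start on GRCm38.p6, 5′ to 3′ on the gene's strand, and capitals mark CCAAT or TTTGAA or TTTAAA (the CHR core) on either strand.
Cdk1 (chr10:69352913-69353062, minus strand): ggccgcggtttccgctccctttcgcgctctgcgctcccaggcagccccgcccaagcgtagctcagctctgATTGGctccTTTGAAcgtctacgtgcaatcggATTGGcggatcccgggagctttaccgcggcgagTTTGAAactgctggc
Ube2c (chr2:164769779-164769928, plus strand): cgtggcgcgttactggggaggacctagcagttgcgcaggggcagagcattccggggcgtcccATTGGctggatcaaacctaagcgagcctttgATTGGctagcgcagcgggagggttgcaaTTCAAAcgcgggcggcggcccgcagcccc
Top2a (chr11:99024190-99024339, minus strand): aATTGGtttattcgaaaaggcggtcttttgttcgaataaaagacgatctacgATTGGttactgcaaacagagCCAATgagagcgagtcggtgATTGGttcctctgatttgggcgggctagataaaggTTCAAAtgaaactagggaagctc
The Cdk1 window held 2 matches to CCAAT and 2 to the CHR core, that of Ube2c 2 and 1, and that of Top2a 4 and 1. Of the 23 mitosis genes 20 matched a RefSeq promoter, of which 16 (80%) held CCAAT, 10 (50%) the CHR core and 9 both. Over the promoters of 27025 genes, windows of the same length held CCAAT in 27.7%, the CHR core in 16.8% and both in 4.91%. For the DNA replication list, with 18 of 22 genes matched, the shares were 61.1% and 16.7%, and 0 genes held both. Such matches describe letters in a window and are not binding sites.

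Cdk1, the kinase that starts mitosis, stood at 21.1 and 21.4 FPKM in the anti-PD-L2 residual tumors, against 29.6, 25.7 and 54.8 in the batch 2 resistant tumors. In batch 1 Cdk1 stood at 10.3, 6.68, 6.18, 6.6 and 8.42 in residual tumors, against 51, 44.1, 28.4, 34.2 and 34.1 in resistant tumors. Both contrasts separated residual from resistant tumors without overlap, and the anti-PD-L2 residual tumors stood above all batch 1 residual tumors. For Cdk1 the difference of differences was 1.5 ± 0.36 (adjusted p = 0.0229), from changes of -0.68 in the batch 2 contrast (adjusted p = 0.199) and -2.18 in the batch 1 contrast (adjusted p = 3.69e-06). Ube2c, which helps the anaphase-promoting complex mark proteins for destruction, was at 47 and 64.6 FPKM in the anti-PD-L2 residual tumors and at 74.7, 61.7 and 154 in the batch 2 resistant tumors. Levels of Ube2c in batch 1 were 25.3, 18.2, 19.1, 11.8 and 19.3 FPKM in residual tumors and 98.9, 114, 70.7, 132 and 95.7 FPKM in resistant tumors. In batch 2 the groups overlapped, since tumor 2 of the anti-PD-L2 residual group stood above resistant tumor 2. For Ube2c the difference of differences was 1.71 ± 0.44 (adjusted p = 0.0279), from changes of -0.69 in the batch 2 contrast (adjusted p = 0.28) and -2.39 in the batch 1 contrast (adjusted p = 5.9e-06). Top2a, the topoisomerase that untangles chromosomes, had 1.85 ± 0.49 (adjusted p = 0.0312). Mki67, the antigen of the Ki-67 proliferation stain, did not pass in the 15 libraries. Mki67 measured 10.1 and 10 FPKM in the anti-PD-L2 residual tumors, against 9.6, 9.42 and 33.6 in the batch 2 resistant tumors. Without antibody, Mki67 measured 6.82, 3.34, 3.97, 4.2 and 3.47 FPKM in batch 1 residual tumors, against 21.8, 15.8, 12.4, 21.4 and 14.1 in batch 1 resistant tumors. In batch 2 the residual values lay inside the resistant range. For Mki67 the difference of differences was 1.26 ± 0.52 (adjusted p = 0.116), from changes of -0.50 in the batch 2 contrast (adjusted p = 0.503) and -1.76 in the batch 1 contrast (adjusted p = 0.000185). Mki67 did pass without Prog-b2 3 (adjusted p = 0.00675), in a fit of all 25 libraries (adjusted p = 0.0481) and with the anti-PD-L2 resistant tumors in place of the batch 2 resistant tumors (adjusted p = 0.027). Some calls hung on 1 library, with losses of the calls of Cdk1, Ube2c and Top2a without aPDL2-small 2 or Prog-b2 2 (adjusted p = 0.054 to 0.147), those of Ube2c and Top2a without Prog-b2 1 (adjusted p = 0.0511 to 0.0587), that of Cdk1 without aPDL2-small 1 (adjusted p = 0.0504), and that of Top2a without Res 2 and 3 or Prog 1 (adjusted p = 0.0503 to 0.0555).

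In DNA replication 6 of 22 genes were called higher and 0 lower, against 6.45% and 5.99% of all genes. All 22 estimates were above 0 (median 0.96). All 22 genes were lower in batch 1 residual than resistant tumors, against 4518 of all 12196 genes. For the higher members, the count was 1 without aPDL2-small 1 and 2, 3 without Prog-b2 2, and 19 without Prog-b2 3. Rrm2, a subunit of the enzyme that makes DNA building blocks, stood at 24.3 and 16.6 FPKM in the anti-PD-L2 residual tumors, against 20.2, 17.8 and 45.3 in the batch 2 resistant tumors. In batch 1 Rrm2 stood at 13.7, 5.21, 7.89, 5.11 and 7.11 in residual tumors, against 52.7, 65.7, 33.3, 38.8 and 56.6 in resistant tumors. The batch 2 groups overlapped and the batch 1 groups did not. For Rrm2 the difference of differences was 2.23 ± 0.51 (adjusted p = 0.0188), from changes of -0.32 in the batch 2 contrast (adjusted p = 0.675) and -2.55 in the batch 1 contrast (adjusted p = 1.07e-05). Cdc45, a part of the replicative helicase, had a value of 1.23 ± 0.29 (adjusted p = 0.0194). The subunits Mcm2 and Mcm6 of the MCM helicase had values of 1.15 ± 0.27 (adjusted p = 0.0203) and 1.22 ± 0.31 (adjusted p = 0.0273). Calls that ended without 1 library were the calls of Rrm2, Mcm2 and Mcm6 without aPDL2-small 1 (adjusted p = 0.0569 to 0.0871), those of Cdc45, Mcm2 and Mcm6 without aPDL2-small 2 (adjusted p = 0.0602 to 0.104), and that of Mcm6 without Prog-b2 2 (adjusted p = 0.0643).

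Glycolysis and hypoxia genes, which low oxygen raises through HIF, also had higher values. All 21 listed genes were tested, 7 were called higher and 0 lower, and all 21 estimates were above 0 (median 1.42). The batch 1 contrast called 19 of the 21 lower in residual tumors (median -1.26), the batch 2 contrast 0 by limma and 0 at an unadjusted p under 0.05 (median 0.20), and the anti-PD-L2 residual tumors stood above the batch 1 residual tumors in 11. For the higher members, the count was 0 without aPDL2-small 2 or Prog 5, 1 without Prog-b2 1 or Res 3, 2 without Prog 3, 3 without Res 2 and 4 or Prog 1, 4 without Prog 4, and 14 without Res 5. Ldha, the lactate dehydrogenase that ends glycolysis, was at 861 and 1056 FPKM in the anti-PD-L2 residual tumors and at 763, 966 and 777 in the batch 2 resistant tumors. Levels of Ldha in batch 1 were 619, 293, 342, 308 and 563 FPKM in residual tumors and 839, 790.3, 975, 933 and 1002 FPKM in resistant tumors. The groups of batch 2 overlapped, and all batch 1 residual tumors stood below the other 10 libraries. For Ldha the difference of differences was 1.36 ± 0.35 (adjusted p = 0.0279), from changes of 0.20 in the batch 2 contrast (adjusted p = 0.708) and -1.16 in the batch 1 contrast (adjusted p = 0.000214). Eno1, an enolase, had a value of 1.4 ± 0.37 (adjusted p = 0.0304), and Pgk1, a kinase of glycolysis, one of 1.69 ± 0.46 (adjusted p = 0.0325). Single libraries decided some calls, and those lost were the calls of Ldha, Eno1 and Pgk1 without aPDL2-small 2 or Prog 5 (adjusted p = 0.0502 to 0.161), those of Ldha and Pgk1 without Res 3 (adjusted p = 0.0502 to 0.0547), those of Eno1 and Pgk1 without Prog-b2 1 (adjusted p = 0.0564 to 0.0573), and that of Pgk1 without Prog-b2 2, Res 4 or Prog 3 (adjusted p = 0.0502 to 0.0536). Settings other than the replicate block ended the calls of Eno1 and Pgk1 with the anti-PD-L2 resistant tumors (adjusted p = 0.0555 to 0.0859).

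Growth factors and proteases of angiogenesis and wound healing went both ways. Of 21 genes 4 were called higher and 2 lower, with a median of 1.42. For the higher members, the count was 2 without aPDL2-small 2, and 9 without Res 5, and for the lower ones the count was 0 without aPDL2-small 2. Hbegf, a ligand of the EGF receptor, measured 149.6 and 125 FPKM in the anti-PD-L2 residual tumors, against 284, 186 and 199 in the batch 2 resistant tumors. Without antibody, Hbegf measured 7.87, 6.09, 6.4, 4.37 and 28.1 FPKM in batch 1 residual tumors, against 151, 155, 206, 119.6 and 123 in batch 1 resistant tumors. The anti-PD-L2 residual tumors stood below the batch 2 resistant tumors without overlap, and far above every batch 1 residual tumor. For Hbegf the difference of differences was 3.31 ± 0.63 (adjusted p = 0.00834), from changes of -0.68 in the batch 2 contrast (adjusted p = 0.446) and -3.99 in the batch 1 contrast (adjusted p = 2.63e-06). Plau, the urokinase that opens the matrix, stood at 136 and 60.3 FPKM in the anti-PD-L2 residual tumors, against 884, 947 and 609.7 in the batch 2 resistant tumors. In batch 1 Plau stood at 27.1, 26.7, 27.1, 39.7 and 44 in residual tumors, against 1406, 1371, 1126, 1208 and 1244 in resistant tumors. It fell in both contrasts without overlap, and by less in batch 2. For Plau the difference of differences was 2.13 ± 0.38 (adjusted p = 0.00616), from changes of -3.12 in the batch 2 contrast (adjusted p = 0.000182) and -5.26 in the batch 1 contrast (adjusted p = 1.37e-08). Areg, amphiregulin, another EGF receptor ligand, was among the largest higher values. Areg was at 34.2 and 166 FPKM in the anti-PD-L2 residual tumors and at 156, 50.7 and 34.6 in the batch 2 resistant tumors. Levels of Areg in batch 1 were 7.24, 0.922, 2.04, 0.85 and 26.7 FPKM in residual tumors and 178, 252, 169, 79.3 and 129 FPKM in resistant tumors. In batch 2 the residual tumors spanned the resistant range, while in batch 1 all residual tumors stood below all resistant tumors. For Areg the difference of differences was 5.21 ± 1.27 (adjusted p = 0.0228), from changes of 0.21 in the batch 2 contrast (adjusted p = 0.922) and -4.99 in the batch 1 contrast (adjusted p = 5.47e-05). Angpt2, which destabilises vessels, had a lower value of -1.71 ± 0.34 (adjusted p = 0.0108), and Vegfc, a growth factor of lymphatic vessels, one of -1.21 ± 0.28 (adjusted p = 0.0199). The calls lost when 1 library was left out were the calls of Areg, Angpt2 and Vegfc without aPDL2-small 2 (adjusted p = 0.0628 to 0.128), and that of Areg without Prog-b2 2 (adjusted p = 0.0516). The calls of Hbegf and Plau held without each of the 15 libraries in turn. Leaving the replicate block aside, other settings ended the call of Plau in a fit of all 25 libraries (adjusted p = 0.102), and the call of Vegfc with the anti-PD-L2 resistant tumors in place of the batch 2 resistant tumors (adjusted p = 0.297).

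Adipocyte genes were higher in the anti-PD-L2 residual tumors. Of 12 listed genes 10 were tested, and 6 were called higher in the difference of differences and 0 lower (median 3.2). Plin4 and Plin1 passed the expression filter through the anti-PD-L2 residual tumors, where they are high. The count and the median are therefore no evidence about the list. In the batch 2 contrast 9 were higher, against 403 of all 12196 genes, and in the batch 1 contrast 4, against 3677. With the anti-PD-L2 resistant tumors instead, limma called 0, with 2 at an unadjusted p under 0.05. In 1 of those tumors the fat cell hormone Adipoq was at 24.9 FPKM. In the difference of differences the count was 2 without aPDL2-small 2. Plin4, a lipid droplet coat protein, measured 11.9 and 13.1 FPKM in the anti-PD-L2 residual tumors, against 0.453, 0.147 and 0.0164 in the batch 2 resistant tumors. Without antibody, Plin4 measured 0.0851, 0.293, 0.538, 0.843 and 0.344 FPKM in batch 1 residual tumors, against 0.147, 0.0668, 0.183, 0.0579 and 0.13 in batch 1 resistant tumors. Both anti-PD-L2 residual tumors stood above all others, and the remaining 3 groups overlapped. For Plin4 the difference of differences was 3.17 ± 0.28 (adjusted p = 0.000149), from changes of 3.5 in the batch 2 contrast (adjusted p = 7.87e-06) and 0.33 in the batch 1 contrast (adjusted p = 0.0863). Fabp4, the fatty acid carrier of fat cells, stood at 339.9 and 548 FPKM in the anti-PD-L2 residual tumors, against 30, 18.1 and 6.55 in the batch 2 resistant tumors. In batch 1 Fabp4 stood at 33.2, 22.5, 74.5, 66.5 and 25.3 in residual tumors, against 14.8, 10.3, 18.3, 12.8 and 19.2 in resistant tumors. It was likewise highest in the anti-PD-L2 residual tumors. For Fabp4 the difference of differences was 3.36 ± 0.70 (adjusted p = 0.0124), from changes of 4.72 in the batch 2 contrast (adjusted p = 0.000631) and 1.36 in the batch 1 contrast (adjusted p = 0.00817). Plin1, another droplet protein, had a value of 2.98 ± 0.39 (adjusted p = 0.00175), Cidec, which fuses droplets, one of 3.53 ± 0.58 (adjusted p = 0.00494), and Adipoq, picked after its values were seen, one of 3.29 ± 0.86 (adjusted p = 0.0289). With 1 library left out at a time, the lost calls were the calls of Fabp4 and Adipoq without aPDL2-small 2 (adjusted p = 0.0697 to 0.113), and that of Adipoq without aPDL2-small 1, Prog-b2 2 or Res 2 (adjusted p = 0.0514 to 0.0633). The calls of Plin4, Plin1 and Cidec held without each of the 15 libraries in turn, except that Plin1 fell below the expression filter without aPDL2-small 2. Apart from the replicate block, other settings ended the calls of Plin4, Fabp4, Plin1, Cidec and Adipoq with the anti-PD-L2 resistant tumors in place of the batch 2 resistant tumors (adjusted p = 0.0964 to 0.288), the calls of Cidec and Adipoq with a pseudocount of 0.1 (adjusted p = 0.0683 to 0.176), and the calls of Fabp4 and Adipoq in a fit of all 25 libraries (adjusted p = 0.0633 to 0.0916).

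Scd1, the desaturase that makes monounsaturated fatty acids, was called with opposite signs in the 2 contrasts. Scd1 was at 334 and 343 FPKM in the anti-PD-L2 residual tumors and at 73, 19.3 and 72.4 in the batch 2 resistant tumors. Levels of Scd1 in batch 1 were 33.3, 22.5, 34.1, 42 and 33 FPKM in residual tumors and 65.3, 91.3, 94.3, 78.9 and 110.3 FPKM in resistant tumors. It was higher in residual than resistant tumors in batch 2 and lower in batch 1, without overlap in either. For Scd1 the difference of differences was 4.22 ± 0.53 (adjusted p = 0.00175), from changes of 2.82 in the batch 2 contrast (adjusted p = 0.00346) and -1.4 in the batch 1 contrast (adjusted p = 0.00118). Another 5 named genes were also called with opposite signs. Nnat, a small membrane protein of the nervous system and of fat cells, measured 11 and 32.5 FPKM in the anti-PD-L2 residual tumors, against 0.435, 0.526 and 0.455 in the batch 2 resistant tumors. Without antibody, Nnat measured 0.485, 0.273, 0.289, 0.369 and 0.563 FPKM in batch 1 residual tumors, against 0.743, 1.2, 0.924, 1.01 and 1.38 in batch 1 resistant tumors. The 2 anti-PD-L2 residual tumors stood far above every other library. Nnat passed the expression filter through these 2 tumors, and its batch 1 change lay between low values of 0.273 to 1.38 FPKM. For Nnat the difference of differences was 4.32 ± 0.38 (adjusted p = 0.000149), from changes of 3.77 in the batch 2 contrast (adjusted p = 6.02e-05) and -0.55 in the batch 1 contrast (adjusted p = 0.035). Itm2a, a membrane protein of differentiating cells, stood at 39 and 112 FPKM in the anti-PD-L2 residual tumors, against 373, 123 and 511 in the batch 2 resistant tumors. In batch 1 Itm2a stood at 209.7, 391, 494, 457 and 454 in residual tumors, against 132, 192, 221, 196 and 185 in resistant tumors. In batch 2 both residual tumors stood below all resistant tumors. For Itm2a the difference of differences was -3.17 ± 0.66 (adjusted p = 0.0129), from changes of -2.1 in the batch 2 contrast (adjusted p = 0.046) and 1.07 in the batch 1 contrast (adjusted p = 0.0224). Nr2f1, the nuclear receptor COUP-TFI linked to tumor dormancy, was at 12 and 16.2 FPKM in the anti-PD-L2 residual tumors and at 24.5, 27.5 and 34.7 in the batch 2 resistant tumors. Levels of Nr2f1 in batch 1 were 29.5, 42.1, 57.3, 34.5 and 33.8 FPKM in residual tumors and 20.8, 25.3, 22.3, 25.7 and 22.7 FPKM in resistant tumors. The residual tumors were the lower group in batch 2 and the higher group in batch 1, without overlap in either. For Nr2f1 the difference of differences was -1.68 ± 0.29 (adjusted p = 0.00544), from changes of -0.98 in the batch 2 contrast (adjusted p = 0.0335) and 0.70 in the batch 1 contrast (adjusted p = 0.00191). Gtpbp3, which modifies mitochondrial transfer RNA, had a value of -1.37 ± 0.18 (adjusted p = 0.00206) and Spryd3 one of 1.0 ± 0.18 (adjusted p = 0.00716). In all, 451 genes were called in both contrasts, 442 with the same sign and 9 with opposite signs. Left out singly, libraries ended the call of Itm2a without aPDL2-small 1 (adjusted p = 0.05). The calls of Scd1, Nnat, Nr2f1, Gtpbp3 and Spryd3 held without each of the 15 libraries in turn.

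Skeletal muscle genes had the lowest median of the lists, -4.3 over 12 tested genes, with all 12 estimates below 0, but 3 of them passed. Myh1 met the expression filter through the batch 1 residual tumors, where it is high. These counts and the median are therefore no evidence about the list. All 12 genes were higher in batch 1 residual than resistant tumors, against 3677 of all 12196 genes. In the batch 2 contrast limma called 0, with 0 at an unadjusted p under 0.05. For the lower members, the count was 0 without aPDL2-small 2, 1 without aPDL2-small 1, Prog-b2 2, Res 2 and 4 or Prog 1, 2 and 5, 5 without Prog-b2 1, 11 without Prog-b2 3, and 12 without Res 1. Myh1, a myosin of fast muscle, measured 0.059 and 0.107 FPKM in the anti-PD-L2 residual tumors, against 0.0811, 0.863 and 0.0976 in the batch 2 resistant tumors. Without antibody, Myh1 measured 3.58, 22.6, 39.2, 48.1 and 14 FPKM in batch 1 residual tumors, against 0.359, 0.102, 1.11, 0.0536 and 0.156 in batch 1 resistant tumors. Every batch 1 residual tumor stood above every other library. For Myh1 the difference of differences was -4.2 ± 0.89 (adjusted p = 0.0134), from changes of -0.27 in the batch 2 contrast (adjusted p = 0.855) and 3.93 in the batch 1 contrast (adjusted p = 2.34e-05). Acta1, the actin of skeletal muscle, stood at 1.44 and 16.3 FPKM in the anti-PD-L2 residual tumors, against 1.62, 49.9 and 1.9 in the batch 2 resistant tumors. In batch 1 Acta1 stood at 21.3, 144, 222, 296 and 132 in residual tumors, against 4.12, 2.87, 14.8, 0.685 and 4.23 in resistant tumors. Batch 2 resistant tumor 2 had more of it than batch 1 residual tumor 1. For Acta1 the difference of differences was -4.82 ± 1.64 (adjusted p = 0.0674), from changes of -0.16 in the batch 2 contrast (adjusted p = 0.958) and 4.66 in the batch 1 contrast (adjusted p = 0.000664). Acta1 did pass without Res 1 (adjusted p = 0.0362), without Prog-b2 3 (adjusted p = 0.0447) and in a fit of all 25 libraries (adjusted p = 0.0486). Actn3, an actinin of fast muscle, Mb, myoglobin, and Des, desmin, had values of -3.94, -3.31 and -3.74 (adjusted p = 0.0457, 0.0347 and 0.0412). Some calls hung on 1 library, with losses of the calls of Myh1, Actn3, Mb and Des without aPDL2-small 2 (adjusted p = 0.055 to 0.108), those of Actn3, Mb and Des without aPDL2-small 1, Prog-b2 2, Res 2 and 4 or Prog 1, 2 and 5 (adjusted p = 0.0514 to 0.162), those of Actn3 and Des without Res 3 or Prog 4 (adjusted p = 0.058 to 0.0774), and that of Actn3 without Prog 3 (adjusted p = 0.0587). Leaving the replicate block aside, other settings ended the calls of Actn3, Mb and Des without the filter on low values (adjusted p = 0.053 to 0.0716), the calls of Actn3 and Des with a pseudocount of 0.1 (adjusted p = 0.0549 to 0.0598), the call of Des with library weights (adjusted p = 0.0512), and the call of Mb with the anti-PD-L2 resistant tumors in place of the batch 2 resistant tumors (adjusted p = 0.0552).

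Of 7 tested red cell genes 2 were lower, and the 9 in the table summed to 41 to 61.9 FPKM in the anti-PD-L2 residual tumors, 7.2 to 20.1 in batch 2 resistant tumors, 431 to 4223 in batch 1 residual tumors and 96 to 319 in batch 1 resistant tumors. For the lower members, the count was 0 without aPDL2-small 1 and 2 or Prog-b2 2, and 1 without Prog 5. Alas2, the first enzyme of heme synthesis in red cells, was at 0.566 and 0.781 FPKM in the anti-PD-L2 residual tumors and at 0.0662, 0.208 and 0.222 in the batch 2 resistant tumors. Levels of Alas2 in batch 1 were 17.1, 64.8, 65.7, 24 and 23 FPKM in residual tumors and 2.03, 4.42, 6.86, 1.8 and 2.83 FPKM in resistant tumors. It was highest in the batch 1 residual tumors without overlap. For Alas2 the difference of differences was -2.49 ± 0.66 (adjusted p = 0.0305), from changes of 0.52 in the batch 2 contrast (adjusted p = 0.587) and 3.01 in the batch 1 contrast (adjusted p = 1.89e-05). Hba-a2, an alpha globin, had the most negative value of the named genes, -6.43 ± 1.61 (adjusted p = 0.0244). Its near-identical copy Hba-a1 was not called (adjusted p = 0.875), and how fragments were split between them is uncertain. Calls that ended without 1 library were the calls of Alas2 and Hba-a2 without aPDL2-small 1 and 2 or Prog-b2 2 (adjusted p = 0.056 to 0.0985), and that of Alas2 without Prog 5 (adjusted p = 0.0532). Apart from the replicate block, other settings ended the call of Hba-a2 with library weights (adjusted p = 0.0946), and the call of Alas2 with a pseudocount of 0.1 (adjusted p = 0.134).

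Among the largest higher values, Aldh1a3, an enzyme that makes retinoic acid, measured 61.8 and 74.8 FPKM in the anti-PD-L2 residual tumors, against 16.9, 10.9 and 27.1 in the batch 2 resistant tumors. Without antibody, Aldh1a3 measured 0.347, 4.46, 1.38, 3.85 and 6.51 FPKM in batch 1 residual tumors, against 79.5, 67.4, 214, 39.2 and 43.3 in batch 1 resistant tumors. In batch 2 the residual tumors stood above the resistant tumors and in batch 1 below them, without overlap in either, although the batch 2 change did not pass. For Aldh1a3 the difference of differences was 6.26 ± 0.89 (adjusted p = 0.00224), from changes of 1.93 in the batch 2 contrast (adjusted p = 0.145) and -4.33 in the batch 1 contrast (adjusted p = 1.18e-05). Smoc2, a matrix protein that binds calcium, stood at 14.1 and 64.7 FPKM in the anti-PD-L2 residual tumors, against 8.11, 8.91 and 2.72 in the batch 2 resistant tumors. In batch 1 Smoc2 stood at 10, 1.85, 1.9, 3.36 and 0.893 in residual tumors, against 50.8, 17.7, 28.8, 31.4 and 15.3 in resistant tumors. It showed the same arrangement. For Smoc2 the difference of differences was 5.04 ± 0.91 (adjusted p = 0.00683), from changes of 2.18 in the batch 2 contrast (adjusted p = 0.112) and -2.86 in the batch 1 contrast (adjusted p = 0.000307). Mamdc2, a proteoglycan, had 5.11 ± 0.79 (adjusted p = 0.00365), and the batch 2 resistant tumors differed from the batch 1 resistant tumors by -3.41 (adjusted p = 0.00356). For several others the 2 anti-PD-L2 residual tumors disagreed. Phlda2, an imprinted growth regulator, was at 0 and 71.1 FPKM in the anti-PD-L2 residual tumors and at 2.97, 2.82 and 1.77 in the batch 2 resistant tumors. Levels of Phlda2 in batch 1 were 0.165, 1.62, 1.47, 0 and 0 FPKM in residual tumors and 8.18, 36.8, 50.9, 36 and 39.7 FPKM in resistant tumors. Tumor 1 of the anti-PD-L2 residual group was at 0 and tumor 2 above every other library. For Phlda2 the difference of differences was 5.65 ± 1.51 (adjusted p = 0.0315), from changes of 1.29 in the batch 2 contrast (adjusted p = 0.556) and -4.36 in the batch 1 contrast (adjusted p = 0.000598). Mmp1a, a collagenase, was at 0.31 and 95.8 FPKM in these tumors, its close copy Mmp1b at 0.193 and 24, the receptor Gpr149 at 0 and 6.28 and the bone sialoprotein Ibsp at 0.215 and 10.1, always lower in tumor 1. Their differences of differences were 4.84, 4.63, 4.4 and 4.38 (adjusted p = 0.0493, 0.0218, 0.0107 and 0.0336). Single libraries decided some calls, and those lost were the calls of Phlda2, Mmp1a, Mmp1b, Gpr149 and Ibsp without aPDL2-small 2 (adjusted p = 0.0579 to 0.235), those of Phlda2, Mmp1a and Ibsp without Prog 3 and 5 (adjusted p = 0.0521 to 0.0814), those of Phlda2 and Mmp1a without Prog-b2 2 or Prog 2 (adjusted p = 0.0515 to 0.0744), those of Mmp1a and Ibsp without Prog-b2 1, Res 2 to 4 or Prog 1 (adjusted p = 0.0509 to 0.0841), and that of Mmp1a without Prog-b2 3 or Res 1 (adjusted p = 0.060 to 0.0641). The calls of Aldh1a3, Smoc2 and Mamdc2 held without each of the 15 libraries in turn. Sizes moved by over 1.5 times, to 2.56 without aPDL2-small 2 and 8.73 without aPDL2-small 1 for Phlda2, and 1.74 without aPDL2-small 2 and 7.94 without aPDL2-small 1 for Mmp1a, and 2.44 without aPDL2-small 2 for Mmp1b, and 2.78 without aPDL2-small 2 for Ibsp. Settings other than the replicate block ended the calls of Phlda2, Mmp1a, Mmp1b and Ibsp with a pseudocount of 0.1 (adjusted p = 0.0518 to 0.0951), the calls of Phlda2, Mmp1a and Ibsp with the anti-PD-L2 resistant tumors in place of the batch 2 resistant tumors (adjusted p = 0.0519 to 0.0794), the calls of Mmp1a and Ibsp without the filter on low values (adjusted p = 0.0525 to 0.0769), and the call of Mmp1a with median-of-ratios size factors or with a covariate for mean-like columns (adjusted p = 0.0523 to 0.0584).

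Angptl7, a secreted protein related to the angiopoietins, was among the largest lower values outside muscle and blood. Angptl7 measured 0.113 and 1.05 FPKM in the anti-PD-L2 residual tumors, against 0.0709, 0.861 and 0.58 in the batch 2 resistant tumors. Without antibody, Angptl7 measured 7.88, 32.8, 70.5, 50.9 and 27.2 FPKM in batch 1 residual tumors, against 0.946, 0.752, 0.338, 0.181 and 0.123 in batch 1 resistant tumors. All batch 1 residual tumors stood above all other libraries, and Angptl7 met the expression filter only through them. For Angptl7 the difference of differences was -4.42 ± 0.78 (adjusted p = 0.00608), from changes of 0.04 in the batch 2 contrast (adjusted p = 0.978) and 4.46 in the batch 1 contrast (adjusted p = 4.42e-06). Ccl12, a chemokine for monocytes in the mouse, stood at 39.6 and 43.5 FPKM in the anti-PD-L2 residual tumors, against 43.2, 104 and 20.7 in the batch 2 resistant tumors. In batch 1 Ccl12 stood at 106, 58.6, 81.7, 104 and 54.9 in residual tumors, against 15.6, 8.0, 5.81, 9.18 and 5.45 in resistant tumors. The groups of batch 2 overlapped, and those of batch 1 did not. For Ccl12 the difference of differences was -3.23 ± 0.65 (adjusted p = 0.0109), from changes of -0.13 in the batch 2 contrast (adjusted p = 0.909) and 3.1 in the batch 1 contrast (adjusted p = 1.4e-05). Of 15 tested myeloid chemokines 2 were lower and 0 higher, the other being Ppbp, the platelet chemokine, with -1.26 ± 0.35 (adjusted p = 0.0343). For these lower members, the count was 1 without aPDL2-small 2, Res 2 and 4 or Prog 1 and 5. Penk, the enkephalin precursor, differed between batch 2 and batch 1 resistant tumors by 3.64 (adjusted p = 0.00552) and had a value of -3.21 ± 0.92 (adjusted p = 0.0404). The calls lost when 1 library was left out were the calls of Ppbp and Penk without aPDL2-small 2, Res 2 or Prog 5 (adjusted p = 0.053 to 0.17), that of Penk without aPDL2-small 1, Prog-b2 1 and 2, Res 1 and 3 or Prog 2 and 4 (adjusted p = 0.0514 to 0.0921), and that of Ppbp without Res 4 or Prog 1 (adjusted p = 0.0529 to 0.0536). The calls of Angptl7 and Ccl12 held without each of the 15 libraries in turn. Leaving the replicate block aside, other settings ended the call of Penk without the filter on low values, in a fit of all 25 libraries or with the anti-PD-L2 resistant tumors in place of the batch 2 resistant tumors (adjusted p = 0.0561 to 0.552), and the call of Ppbp with a pseudocount of 0.1 or with library weights (adjusted p = 0.0635 to 0.134).

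Of 14 tested neutrophil genes 2 were lower and 0 higher, and 9 were lower in anti-PD-L2 residual than in batch 1 residual tumors. For the lower members, the count was 0 without aPDL2-small 2, and 1 without Prog-b2 1 and 2, Res 3 and 4 or Prog 1, 3, 4 and 5. Csf3r, the receptor for the neutrophil growth factor G-CSF, was at 3.54 and 2.58 FPKM in the anti-PD-L2 residual tumors and at 1.36, 2.72 and 0.45 in the batch 2 resistant tumors. Levels of Csf3r in batch 1 were 12.3, 18, 19.9, 23.6 and 12.9 FPKM in residual tumors and 1.18, 1.77, 1.9, 1.08 and 1.63 FPKM in resistant tumors. The batch 1 residual tumors stood above all others. For Csf3r the difference of differences was -2.05 ± 0.41 (adjusted p = 0.0109), from changes of 0.79 in the batch 2 contrast (adjusted p = 0.194) and 2.84 in the batch 1 contrast (adjusted p = 1.62e-06). Cxcr2, the chemokine receptor of neutrophils, had a value of -1.12 ± 0.33 (adjusted p = 0.0427). Of 10 tested acute phase genes 3 were higher and 0 lower, and 5 estimates lay above 0. Against the batch 1 groups, 2 were higher and 3 lower in anti-PD-L2 residual tumors, and 0 higher and 3 lower in batch 2 resistant tumors (median -1.87). C3, the central complement protein, measured 236 and 83.6 FPKM in the anti-PD-L2 residual tumors, against 2.97, 4.37 and 0.573 in the batch 2 resistant tumors. Without antibody, C3 measured 56.9, 51.5, 26.8, 78.3 and 21.9 FPKM in batch 1 residual tumors, against 10.7, 7.56, 4.38, 6.34 and 5.42 in batch 1 resistant tumors. Residual tumors were higher in both batches without overlap, by more in batch 2. For C3 the difference of differences was 2.95 ± 0.73 (adjusted p = 0.024), from changes of 5.46 in the batch 2 contrast (adjusted p = 0.000458) and 2.51 in the batch 1 contrast (adjusted p = 0.000158). Serpina3n, a protease inhibitor, had a value of 4.05 ± 0.89 (adjusted p = 0.0154), and Lbp, which binds bacterial lipopolysaccharide, one of 3.49 ± 0.92 (adjusted p = 0.0304). With the anti-PD-L2 resistant tumors instead, the value of Serpina3n was -1.41. With 1 library left out at a time, the lost calls were the calls of Csf3r, Cxcr2 and Serpina3n without aPDL2-small 2 (adjusted p = 0.0597 to 0.0918), those of Cxcr2, C3 and Lbp without aPDL2-small 1 (adjusted p = 0.0992 to 0.138), those of Cxcr2 and Lbp without Res 3 (adjusted p = 0.0525 to 0.0707), and that of Cxcr2 without Prog-b2 1 and 2, Res 2 and 4 or Prog 1, 3, 4 and 5 (adjusted p = 0.0533 to 0.0959). Sizes moved by over 1.5 times, to 2.1 without aPDL2-small 1 for Lbp. Apart from the replicate block, other settings ended the calls of Cxcr2, C3 and Lbp with the anti-PD-L2 resistant tumors in place of the batch 2 resistant tumors (adjusted p = 0.0561 to 0.378), the calls of Cxcr2 and Lbp with library weights (adjusted p = 0.05005 to 0.0917), the call of Cxcr2 with a pseudocount of 0.1, without the filter on low values or with a covariate for mean-like columns (adjusted p = 0.0504 to 0.166), and the call of C3 in a fit of all 25 libraries (adjusted p = 0.0765).

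T cell genes, which the PD-1 pathway restrains, gave no called difference. None of 15 tested T cell genes and none of 12 cytotoxic lymphocyte genes was called by limma in the difference of differences, with medians of 0.04 and -0.56, and 1 and 0 of them had an unadjusted p under 0.05. In the batch 1 contrast 14 of the 15 T cell genes were higher in residual tumors (median 2.13), against 3677 of all 12196 genes. In the batch 2 contrast 1 was called, against 4.49% of all genes, although 13 of the 15 were higher at an unadjusted p under 0.05 (median 1.68). Cd8a, the coreceptor of killer T cells, stood at 0.785 and 14.2 FPKM in the anti-PD-L2 residual tumors, against 0.0394, 0.322 and 0.0808 in the batch 2 resistant tumors. In batch 1 Cd8a stood at 3.23, 12.2, 9.85, 9.25 and 1.02 in residual tumors, against 0.432, 0.484, 0.514, 0.757 and 0.376 in resistant tumors. The anti-PD-L2 residual tumors stood above the batch 2 resistant tumors, but tumor 1 lay below and tumor 2 above the whole batch 1 residual group. For Cd8a the difference of differences was 0.06 ± 0.97 (adjusted p = 0.973), from changes of 2.19 in the batch 2 contrast (adjusted p = 0.132) and 2.13 in the batch 1 contrast (adjusted p = 0.00393). Pdcd1, which encodes PD-1, was at 0.966 and 3.14 FPKM in the anti-PD-L2 residual tumors and at 0.275, 0.647 and 0.0194 in the batch 2 resistant tumors. Levels of Pdcd1 in batch 1 were 3.06, 10.7, 10.9, 3.35 and 0.60 FPKM in residual tumors and 0.168, 0.274, 0.158, 0.204 and 0.0806 FPKM in resistant tumors. Residual tumors stood above resistant tumors in both batches without overlap. For Pdcd1 the difference of differences was -1.01 ± 0.80 (adjusted p = 0.403), from changes of 1.15 in the batch 2 contrast (adjusted p = 0.316) and 2.15 in the batch 1 contrast (adjusted p = 0.000947). Cd274, which encodes PD-L1, measured 4.62 and 10.3 FPKM in the anti-PD-L2 residual tumors, against 11.7, 12.4 and 6.99 in the batch 2 resistant tumors. Without antibody, Cd274 measured 9.33, 9.1, 9.1, 18.6 and 6.25 FPKM in batch 1 residual tumors, against 11.6, 6.14, 19.1, 3.35 and 4.65 in batch 1 resistant tumors. All 4 groups overlapped. For Cd274 the difference of differences was -0.83 ± 0.69 (adjusted p = 0.427), from changes of -0.48 in the batch 2 contrast (adjusted p = 0.64) and 0.35 in the batch 1 contrast (adjusted p = 0.441). Pdcd1lg2, which encodes the antibody's target PD-L2, stood at 1.8 and 1.65 FPKM in the anti-PD-L2 residual tumors, against 0.907, 1.88 and 0.732 in the batch 2 resistant tumors. In batch 1 Pdcd1lg2 stood at 1.73, 0.973, 0.556, 0.519 and 0.139 in residual tumors, against 0.0738, 0.0391, 0.0383, 0 and 0.0391 in resistant tumors. Its mean lay below 1 FPKM over the 15 libraries, so it was not tested. Every batch 1 resistant tumor stood below every other library.

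Of 20 tested checkpoint genes 2 were called higher and 0 lower, a share near the 6.45% of all genes called higher, and the count was 1 without aPDL2-small 1 and 2, Prog-b2 2 and 3, Res 1, 3 and 4 or Prog 1, 2 and 4. They were Cd276, which encodes B7-H3, with 1.66 ± 0.38 (adjusted p = 0.0184), and Cd80, a ligand of CD28 and CTLA-4, with 1.6 ± 0.46 (adjusted p = 0.0408). None of 19 interferon gamma response genes, 25 type I interferon-stimulated genes, 17 genes of MHC class I and the immunoproteasome, 10 monocyte, 7 dendritic cell and 12 mast cell genes was called by limma in the difference of differences, and 1 of the monocyte and 2 of the mast cell genes had an unadjusted p under 0.05, with 0 in the other 4 lists. Cxcl10, an interferon-induced chemokine for T cells, ranged in batch 2 from 42.9 to 45.6 FPKM in residual and from 5.25 to 183 in resistant tumors, and its value was -0.49 ± 1.45 (adjusted p = 0.841). Of 14 listed B and plasma cell genes 6 passed the expression filter, and 3 of these were called higher and 0 lower. Mzb1 and Cd79a passed the filter through the anti-PD-L2 residual tumors, where they are high, so this count is no evidence about the list, and the count was 0 without aPDL2-small 2, and 1 without aPDL2-small 1 or Prog-b2 2. Mzb1, a chaperone of antibody-making cells, was at 4.22 and 9.02 FPKM in the anti-PD-L2 residual tumors and at 0.176, 0.159 and 0.0522 in the batch 2 resistant tumors. Levels of Mzb1 in batch 1 were 0.25, 1.06, 1.04, 0.678 and 0.0689 FPKM in residual tumors and 0.0686, 0, 0.0725, 0.075 and 0 FPKM in resistant tumors. Both anti-PD-L2 residual tumors stood above all other libraries. For Mzb1 the difference of differences was 2.09 ± 0.38 (adjusted p = 0.00716), from changes of 2.68 in the batch 2 contrast (adjusted p = 0.000515) and 0.59 in the batch 1 contrast (adjusted p = 0.0278). Cd79a, a part of the B cell receptor, had a value of 3.21 ± 0.82 (adjusted p = 0.0267), and Igj, the joining chain of secreted antibodies, one of 3.18 ± 0.96 (adjusted p = 0.0477). H2-DMb2, a peptide loader, was the 1 called gene of 8 in MHC class II, at 1.57 ± 0.44 (adjusted p = 0.0355). Left out singly, libraries ended the calls of Cd79a, Igj and Cd80 without Prog-b2 2 (adjusted p = 0.0522 to 0.0891), those of Igj, Cd80 and H2-DMb2 without aPDL2-small 2 or Prog 2 (adjusted p = 0.0551 to 0.167), those of Igj, Cd276 and Cd80 without aPDL2-small 1 (adjusted p = 0.0667 to 0.102), those of Igj and Cd80 without Prog-b2 3, Res 1 and 4 or Prog 1 and 4 (adjusted p = 0.0513 to 0.0713), those of Igj and H2-DMb2 without Prog-b2 1 or Prog 3 and 5 (adjusted p = 0.0504 to 0.0727), and those of Cd80 and H2-DMb2 without Res 3 (adjusted p = 0.057 to 0.070). The call of Mzb1 held without each of the 15 libraries in turn, except that Mzb1 fell below the expression filter without aPDL2-small 1 and 2. Cd79a fell below the expression filter without aPDL2-small 2. Sizes moved by over 1.5 times, to 4.87 without aPDL2-small 1 for Cd79a. Settings other than the replicate block ended the calls of Mzb1, Cd79a, Igj and H2-DMb2 with the anti-PD-L2 resistant tumors in place of the batch 2 resistant tumors (adjusted p = 0.0628 to 0.372), the calls of Mzb1, Igj and H2-DMb2 with a pseudocount of 0.1 (adjusted p = 0.0794 to 0.128), the calls of Igj, Cd80 and H2-DMb2 with library weights (adjusted p = 0.0611 to 0.202), the calls of Igj and Cd80 without the filter on low values (adjusted p = 0.0626 to 0.0732), and the calls of Cd80 and H2-DMb2 in a fit of all 25 libraries (adjusted p = 0.0561 to 0.0842).

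Some changes were shared by both contrasts. In 407 of the 442 genes called in both with the same sign, the difference of differences was not called, which does not show that the changes were equal. Spon2, a secreted matrix protein, measured 31.7 and 21.5 FPKM in the anti-PD-L2 residual tumors, against 0.299, 2.06 and 0.386 in the batch 2 resistant tumors. Without antibody, Spon2 measured 31.3, 18.2, 21.7, 29.6 and 6.5 FPKM in batch 1 residual tumors, against 0.464, 0.414, 0.533, 0.174 and 0.159 in batch 1 resistant tumors. Residual tumors stood above resistant tumors in both batches without overlap. For Spon2 the difference of differences was 0.04 ± 0.62 (adjusted p = 0.973), from changes of 3.94 in the batch 2 contrast (adjusted p = 0.00113) and 3.9 in the batch 1 contrast (adjusted p = 2.94e-06). The mast cell proteases Tpsb2, Cma1 and Cpa3 were higher in residual tumors of both batches, by 3.78, 3.73 and 3.45 in the batch 2 contrast (adjusted p = 0.0396, 0.0293 and 0.0158) and by 4.68, 4.73 and 4.47 in the batch 1 contrast (adjusted p = 4.2e-05, 2.02e-05 and 7.72e-06). Apoc1, a lipoprotein of macrophages and liver, was higher by 4.19 (adjusted p = 0.00456) and 3.42 (adjusted p = 3.86e-05) in the batch 2 and batch 1 contrasts. Stc1, a secreted hormone of calcium and phosphate balance, stood at 8.89 and 33.7 FPKM in the anti-PD-L2 residual tumors, against 151, 259 and 162 in the batch 2 resistant tumors. In batch 1 Stc1 stood at 5.36, 6.49, 10.6, 3.54 and 13.1 in residual tumors, against 253, 301, 412, 185 and 254 in resistant tumors. It fell in both contrasts without overlap. For Stc1 the difference of differences was 1.74 ± 0.64 (adjusted p = 0.0837), from changes of -3.33 in the batch 2 contrast (adjusted p = 0.00388) and -5.07 in the batch 1 contrast (adjusted p = 6.12e-07). The difference for Stc1 passed without aPDL2-small 1 (2.65, adjusted p = 0.0213) and without Res 5 (1.94, adjusted p = 0.0456), and was 0.84 without aPDL2-small 2 (adjusted p = 0.432).

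Genes of TGF-beta signalling and mesenchymal transition gave 3 higher and 2 lower of 22, against 6.45% and 5.99% of all genes. For the higher members, the count was 0 without aPDL2-small 2, and 1 without Prog-b2 2, Res 2 to 4 or Prog 2, 3 and 5, and for the lower ones the count was 1 without aPDL2-small 2 or Prog-b2 2. Snai2, the transcription factor Slug, was at 4.33 and 2.17 FPKM in the anti-PD-L2 residual tumors and at 4.29, 5.16 and 4.92 in the batch 2 resistant tumors. Levels of Snai2 in batch 1 were 7.67, 8.62, 8.5, 9.41 and 7.9 FPKM in residual tumors and 4.59, 4.06, 3.69, 3.19 and 4.24 FPKM in resistant tumors. The batch 1 residual tumors were the highest libraries, and the anti-PD-L2 residual tumors included the lowest. For Snai2 the difference of differences was -1.42 ± 0.23 (adjusted p = 0.00456), from changes of -0.49 in the batch 2 contrast (adjusted p = 0.15) and 0.93 in the batch 1 contrast (adjusted p = 4.58e-05). Cdh2, N-cadherin, had a value of 1.58 ± 0.34 (adjusted p = 0.014) and differed between batch 2 and batch 1 resistant tumors by -1.36 (adjusted p = 0.00495). Tgfb3, a TGF-beta ligand, had one of -1.15 ± 0.29 (adjusted p = 0.0246), and Tgfbi, a matrix protein that TGF-beta induces, one of 1.34 ± 0.38 (adjusted p = 0.0388). Axl, a receptor kinase of drug-tolerant melanoma cells, had 159.9 and 198 FPKM in the anti-PD-L2 residual tumors and 259, 159.7 and 191 in batch 2 resistant tumors, and its value was 0.03 ± 0.26 (adjusted p = 0.95). Mitf, the master regulator of pigment cells, was not called either (-1.0 ± 0.55, adjusted p = 0.223), and Pax3, a regulator of Mitf, was the 1 called lower of 8 lineage genes (-0.87 ± 0.23, adjusted p = 0.0306). Some calls hung on 1 library, with losses of the calls of Cdh2, Tgfb3 and Tgfbi without aPDL2-small 2 (adjusted p = 0.0742 to 0.22), those of Tgfb3, Tgfbi and Pax3 without Prog-b2 2 (adjusted p = 0.0584 to 0.0752), those of Tgfbi and Pax3 without Res 2 and 3 or Prog 2, 3 and 5 (adjusted p = 0.0512 to 0.0678), that of Tgfbi without Prog-b2 1 or Res 4 (adjusted p = 0.0548 to 0.0581), and that of Pax3 without aPDL2-small 1 (adjusted p = 0.125). The call of Snai2 held without each of the 15 libraries in turn. Sizes moved by over 1.5 times, to 0.79 without aPDL2-small 2 for Tgfbi. Leaving the replicate block aside, other settings ended the call of Tgfbi without the filter on low values or with the anti-PD-L2 resistant tumors in place of the batch 2 resistant tumors (adjusted p = 0.0579 to 0.338).

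In the list of Schwann and neural genes 2 of 14 were higher and 1, Penk, lower, and for the higher members the count was 0 without aPDL2-small 2, 1 without Prog-b2 2 and 3, Res 1 to 4 or Prog 1, 2, 3 and 5, and 6 without aPDL2-small 1. Nptx1, a neuronal pentraxin, had a value of 2.98 ± 0.71 (adjusted p = 0.0217), and Nefm, a neurofilament, one of 3.3 ± 0.97 (adjusted p = 0.0424), with 3.66 and 81.6 FPKM in the 2 anti-PD-L2 residual tumors. Of 18 fibroblast and matrix genes 1 was called, Fbn1, fibrillin (2.0 ± 0.60, adjusted p = 0.0458), and of 10 pericyte and smooth muscle genes 1, Des. None of 20 genes of oxidative phosphorylation (median 0.01) and none of 12 keratinocyte genes (median -1.32) was called by limma, and 3 and 0 of them had an unadjusted p under 0.05. The plot of list medians gives both contrasts for all 32 lists. Calls that ended without 1 library were the calls of Nefm and Fbn1 without Prog-b2 2 and 3, Res 2 and 3 or Prog 1, 2, 3 and 5 (adjusted p = 0.0585 to 0.0808), those of Nptx1 and Nefm without aPDL2-small 2 (adjusted p = 0.13 to 0.163), that of Fbn1 without aPDL2-small 1, Prog-b2 1 or Prog 4 (adjusted p = 0.0625 to 0.214), and that of Nefm without Res 1 and 4 (adjusted p = 0.0512 to 0.0635). Sizes moved by over 1.5 times, to 1.23 without aPDL2-small 2 and 5.38 without aPDL2-small 1 for Nefm, and 0.87 without aPDL2-small 1 and 3.14 without aPDL2-small 2 for Fbn1. Apart from the replicate block, other settings ended the calls of Nefm and Fbn1 without the filter on low values or with a covariate for mean-like columns (adjusted p = 0.0507 to 0.0696), and the call of Fbn1 with the anti-PD-L2 resistant tumors in place of the batch 2 resistant tumors (adjusted p = 0.0566).

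**Figure D5:**
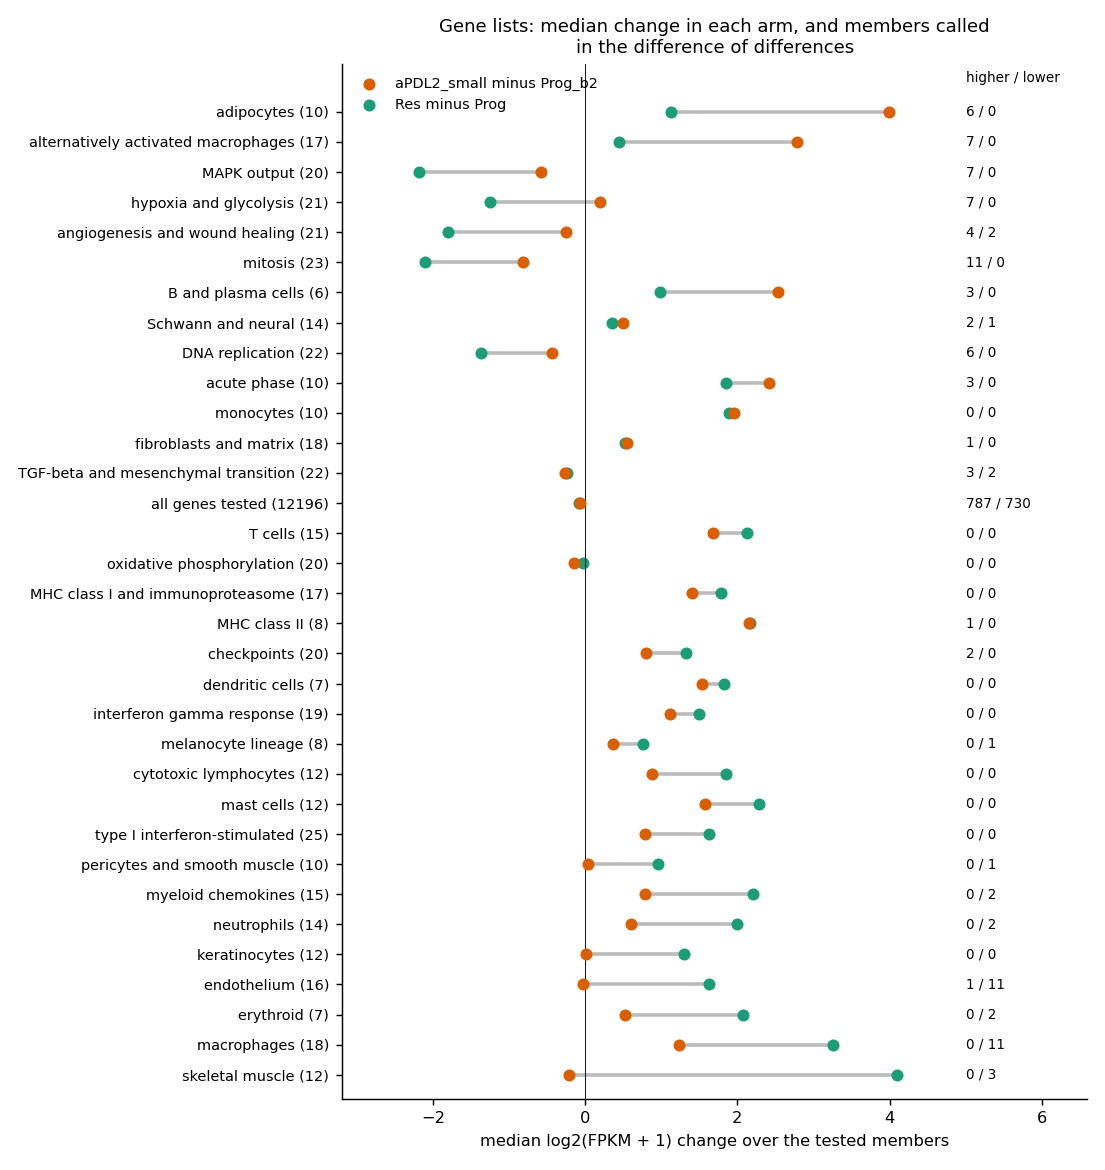
Median change of each of 32 gene lists and of all tested genes in the batch 2 contrast and in the batch 1 contrast (horizontal axis, log2 of FPKM + 1), sorted by the median difference of differences, with the number of members called higher and lower beside each list. Medians of the mitosis and MAPK output lists lie further below 0 in batch 1 than in batch 2, and the adipocyte list stands highest in batch 2.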

How the data were processed

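RNA of 25 tumor biopsies was measured by RNA-seq, and 15 enter the contrast. Per the labels' protocols, RNA came from a mirVana kit and went into unstranded TruSeq libraries of poly(A) RNA, so antisense pairs cannot be told apart. The authors' deposited table holds FPKM for 23940 gene symbols. Per the submitters' processing notes, TopHat, TopHat2, Cuffnorm, Cuffdiff and the build mm9 were used, with neither versions nor roles given in the sources used here. The deposited FPKM were already scaled across libraries (size factors 0.954 to 1.04 in the 15 libraries), 6 columns of batch 1 look like means of a pair of values, and the transcript Mir2137 alone took up to 54.4% of a column's sum. FPKM keep no read counts, so read depth is unknown and counting error cannot be stated.

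FPKM were analysed as log2(FPKM + 1), with a pseudocount of 1, in limma 3.58.1 under R 4.3.3 (lmFit, contrasts.fit and eBayes with a variance trend), with 1 term per group over the 15 libraries. Genes with a mean of at least 1 FPKM were tested, two-sided, and called at a Benjamini-Hochberg adjusted p below 0.05. All 5 comparisons come from this fit, and a sixth, with the anti-PD-L2 resistant tumors (n = 2), from a fit of 14 libraries. Some genes, among them Nnat, Plin1, Plin4, Myh1, Angptl7, Prl8a9 and Esp15, met the expression filter only through the group where they were high. This partly fixed their direction. The method was tested on simulated data. The members, the gene lists and the rule for named genes were chosen with earlier results of these data known, so no list is independent evidence of its direction. The rule takes the 12 largest values in each direction among called genes with a group mean of at least 5 FPKM, up to 4 called members per list by adjusted p, genes always named, and genes called in both contrasts with opposite or shared signs. Genes outside it are said to be picked after their values were seen. Other settings were a pseudocount of 0.1, no expression filter, library weights, median-of-ratios size factors, a block for the replicate number, a fit of all 25 libraries, a covariate for mean-like columns, the anti-PD-L2 resistant tumors in place of the batch 2 resistant tumors, and each library left out. Promoter sequences are RefSeq's for GRCm38.p6. Tables and figures were made in Python 3.11.15 with pandas 2.3.3, numpy 2.4.6 and matplotlib 3.10.9.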

Additional observations from a re-analysis of the deposited data

Results flagged for a closer look

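The 2 residual-to-resistant contrasts differed by the test of the difference in 1517 genes, and in 1757 of 12251 genes with the anti-PD-L2 resistant tumors. In 6 named genes the contrasts were called with opposite signs. Their differences of differences were 4.22 for Scd1, 4.32 for Nnat, 1.0 for Spryd3, -3.17 for Itm2a, -1.68 for Nr2f1 and -1.37 for Gtpbp3. The batch 2 contrast of these genes joins stage and antibody, and which of them carries the sign was not tested. Nnat passed the expression filter through the anti-PD-L2 residual tumors, with batch 1 values of 0.273 to 1.38 FPKM.

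In 10 of 238 pairs of a named gene and a group of 5, 1 tumor lay far from the other 4 (4.2%), and chance gives about 1 in 20. Among batch 1 residual tumors, tumor 5 was highest in Dusp6 (74.2 FPKM, next 32.5) and in Flt1 (9.72, next 5.08), and tumor 1 was highest in Krt14 (158, next 1.62) and Krt10 (148, next 4.39) and lowest in Itm2a (209.7, next 391). Among batch 1 resistant tumors, tumor 1 was lowest in Phlda2 (8.18, next 36) and highest in Vegfc (6.6, next 3.9), tumor 2 was lowest in Csf1r (10.3, next 14), and tumor 4 was lowest in Esp15 (11.7, next 86.4) and highest in Cd79a (1.97, next 0.283).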

How the results depend on the processing

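Of 94 named genes called in the difference of differences, 27 stayed called without each of the 15 libraries in turn. With single libraries left out, the difference of differences was called for 369 to 2307 genes, anti-PD-L2 residual against batch 2 resistant tumors for 249 to 1649, anti-PD-L2 residual against batch 1 residual tumors for 452 to 2724, batch 2 against batch 1 resistant tumors for 204 to 1450, and the difference of differences with the anti-PD-L2 resistant tumors for 364 to 2861, while batch 1 residual against resistant tumors stayed at 7574 to 8372. Leaving out 1 of the 2 anti-PD-L2 residual tumors leaves a lone tumor that is assumed to vary like the other groups. Between anti-PD-L2 residual and batch 2 resistant tumors 873 genes were called with no filter on low values and 228 with library weights, and between the resistant groups 227 with a covariate for the mean-like columns. The cause of these moves was not tested.

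Pairing by number is undecided. Same-numbered tumors' deviations from group means correlated at -0.0966 to 0.0936, and for n = 2 they are mirror images. With the replicate block 1404 genes were called in the difference of differences, 68 between anti-PD-L2 residual and batch 2 resistant tumors, and 787 in the difference of differences with the anti-PD-L2 resistant tumors. The block ended the calls of 19 of the 94 named genes (Phlda2, Areg, Dusp6, Cd209d, Cd209a, Lbp, Ppbp, Cd79a, Igj, Cd276, Fbn1, Pfkp, Vegfc, Tgfbi, Nefm, Adipoq, Il10, Lyve1 and Spry4, adjusted p = 0.0502 to 0.124), and with it Mki67, Acta1 and Stc1 passed (adjusted p = 0.00871, 0.0367 and 0.043). The block could not be fitted to the 2 comparisons across batches.

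The values that changed sign belonged to genes near 0 that were not called, except Serpina3n with the anti-PD-L2 resistant tumors (-1.41). That setting gave 0.10 for B2m, 0.11 for Cxcl10, -0.67 for Cd8a, -0.38 for Spon2 and -0.40 for Apoc1. A pseudocount of 0.1 gave 0.14 for Cd3g and -0.37 for Spon2. The replicate block gave -0.46 for Ifi27l2a, -0.000602 for Axl and -0.14 for Spon2. Library weights gave -0.0284 for Ifi27l2a, -0.55 for Cd8a and -0.0715 for Axl. Single libraries left out gave -0.13 to 0.22 for Axl, -0.49 to 0.65 for B2m, -1.66 to 0.48 for Ccl5, -1.35 to 1.25 for Cd3g, -1.49 to 1.61 for Cd8a, -1.52 to 0.91 for Cxcl10, -0.46 to 1.8 for Ifi27l2a and -0.32 to 0.44 for Spon2.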

Other observations

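The 2 anti-PD-L2 residual tumors also stood apart in single genes, given here as values of single tumors and picked after they were seen. Ecel1, an endothelin-converting enzyme of neurons, was at 0.101 FPKM in tumor 1 and 515 in tumor 2. Sox10 was at 188.5 and 0.713 FPKM in the anti-PD-L2 resistant tumors 1 and 2. Over the 12196 tested genes, the log2 differences between the 2 anti-PD-L2 residual tumors had an SD of 0.76.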
